A study of Mus musculus with 21 samples.

Results

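Spiral ganglion neurons (SGNs) of embryonic mouse cochleae (E15.5) were compared with those of postnatal day 30 (P30), the first and the last of the 5 ages at which these cells were collected. There were 3 libraries at each age, so 6 of the 21 libraries of the series entered the comparison, and 14083 of the 52550 genes of the count table had a CPM (counts per 1000000 counts of the library) over 1 in all 3 libraries of E15.5 or of P30 and were tested. Both groups came from C57BL/6 mice that carried ShhCre/+ and Rosa26-CAG-loxp-stop-loxp-tdTomato (Ai9)/+, so each animal had 1 *Shh* allele that drives Cre and 1 reporter allele that Cre switches on. The red cells were freed from the dissected cochlea or inner ear with pronase, picked by hand and washed, and the animals in which the whole ear was red through Cre leakage had been set aside by the study. At E15.5 the libraries pooled 69, 90 and 92 cells, and at P30 they pooled 114, 90 and 90 cells. The study had also tested cDNA of each pool by qPCR for marker genes, *Sox10* and *Myo6* among them, before sequencing, so these genes had a part in choosing the pools. The labels do not tie a library to an animal or litter, so the p-values measure the spread between pools, part of which may be technical.

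SGNs are the bipolar neurons that carry sound signals from hair cells (HCs) to the cochlear nucleus of the brainstem. At E15.5 they have left the cell cycle and their processes grow toward the sensory epithelium and the brain. At P30, well after the onset of hearing, they are wrapped in myelin, fire fast and precisely timed trains of action potentials, and release glutamate from large terminals in the brainstem. The genes below are grouped by their part in this change, from transcription factors and axon growth to channels, synapses and energy supply.

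Total counts on genes lay between 12887010 and 18737521 at E15.5 and between 20384100 and 37287489 at P30, so the 3 counts that can lie behind a 0 by counting error alone equal 0.1601 to 0.233 CPM and 0.0805 to 0.147 CPM. Mitochondrial genes took 9.57% to 13.53% of the counts at E15.5 and 17.9% to 22.1% at P30, and the number of genes with a CPM over 1 was 15669 to 16317 at E15.5 and 13201 to 14372 at P30. Levels are given as RPKM (CPM per kilobase of gene, with library totals scaled by TMM factors), since a single 57-base gene, *Gm23935*, took 37.4% to 68.1% of TPM. Of the 8 SGN markers, *Slc17a6*, *Slc17a7*, *Lypd1*, *Snap25* and *Prox1* rose and 2 fell, *Gata3* among them, while the log2 fold change of *Tubb3* was 0.38 ± 0.22. The summed level of 10 HC markers was 18.2 to 92.0 RPKM at E15.5 and 70.1 to 284 RPKM at P30, against 1789.7 to 1980.1 RPKM in the P12 HC libraries, and *Pou4f3*, *Tmc1* and *Gfi1* were higher at P30 among the 9 that were tested. *Tmc1* lost its call in 6 of 22 other settings, *Gfi1* in 10 and *Pou4f3* in 13, all 3 of them without E15.5 replicate 1, without P30 replicate 1, without the 5 libraries numbered 1 and with sample quality weights, and *Gfi1* and *Pou4f3* also with library size alone and without E15.5 replicate 2 or 3 or P30 replicate 3. The rises among HC markers numbered 0 with sample quality weights, without E15.5 replicate 1 and without the libraries numbered 1, and 1 with library size alone. For 12 glial markers the sums were 63.9 to 195 RPKM at E15.5 and 10.8 to 198 RPKM at P30. In the P8 glial libraries they were 7307 to 10275 RPKM. *Erbb3* was the single one of 10 tested that fell. The falls numbered 2 with a replicate block, counts thinned to equal depth or the 6 libraries alone. They numbered 3 without E15.5 replicate 1 or P30 replicate 1 or with sample quality weights. They numbered 4 with edgeR, DESeq2 or library size alone and 6 without the libraries numbered 1. P30 replicate 1 stood apart from the other P30 libraries, with sums of 284 RPKM for HC, 198 RPKM for glial, 70.0 RPKM for mesenchymal and 28.5 RPKM for supporting cell markers, where the other P30 libraries had 70.1 and 89.2, 43.3 and 10.8, 2.95 and 3.07, and 2.69 and 1.97 RPKM. At E15.5 the sums were 36.2, 57.7 and 45.5 RPKM for mesenchymal and 10.2, 15.8 and 13.2 RPKM for supporting cell markers. Of the 10 mesenchymal markers tested, 0 were called, but without the libraries numbered 1, 9 were called lower. Blood markers summed to 110.0 RPKM in E15.5 replicate 1, to 14.4 RPKM in P30 replicate 1 and to at most 2.44 RPKM in the other 4 libraries. *Hbb-bs*, the adult beta-globin, was at 67.4, 10.5, 12.5 and 7.18 RPKM in the libraries numbered 1 of E15.5, P1, P8 and P30 and at 0 RPKM in the other 11 SGN libraries. *Col1a1*, a collagen of connective tissue, and *Tnnt3*, the fast troponin T of muscle, were likewise highest in the library numbered 1 at each of the 5 ages. *Opalin* of oligodendrocytes, *C1qa* of microglia, *Hbb-y* and *Hba-x* of embryonic blood, *Slc32a1* of inhibitory neurons, *Slc6a3* and *Dbh* of catecholaminergic neurons and *Folr1* of choroid plexus had at most 3 counts in each of the 6 libraries. The part of these other transcripts in the results was not tested gene by gene, and in such pools fewer cells of a type and less RNA per cell cannot be told apart.

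A gene was called when the limma-voom contrast of P30 with E15.5 had a Benjamini-Hochberg adjusted p under 0.05 and a fitted change over 2-fold. By that rule 5270 of 14083 genes (37.4%) changed, 2767 of them higher at P30 (19.6%) and 2503 lower (17.8%). Changes over 16-fold were fitted for 382 of the genes that rose and 413 of those that fell. The RPKM values of the 2 ages did not overlap for 7519 genes (53.4%), among them 2597 of the genes called higher and 2384 of those called lower. At the other end, 1985 genes had a 95% interval that lay within 2-fold, and 6828 genes were neither called nor held within 2-fold. The split depends on how totals were scaled, because TMM factors were 1.17 to 1.27 at E15.5 and 0.831 to 0.962 at P30. With library size alone the median log2 fold change of all genes moved from -0.0069 to -0.47, and 1726 genes were called higher and 3959 lower, so 30.4% in place of 52.5% of the calls were rises. The medians of the gene lists below moved down with it, and are given under that scaling where they changed sign. Directions below are relative to the TMM scaling, and a call that the other scaling removes is named where it occurs. Of the genes called lower, 45.4% had their highest P30 value in replicate 1, against 36.0% of all genes tested, and of the genes called higher, 44.3% had their highest E15.5 value in replicate 2, against 33.8% of all genes. Without P30 replicate 1, 4482 genes were called, and without E15.5 replicate 2, 5196.

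**Figure D1:**
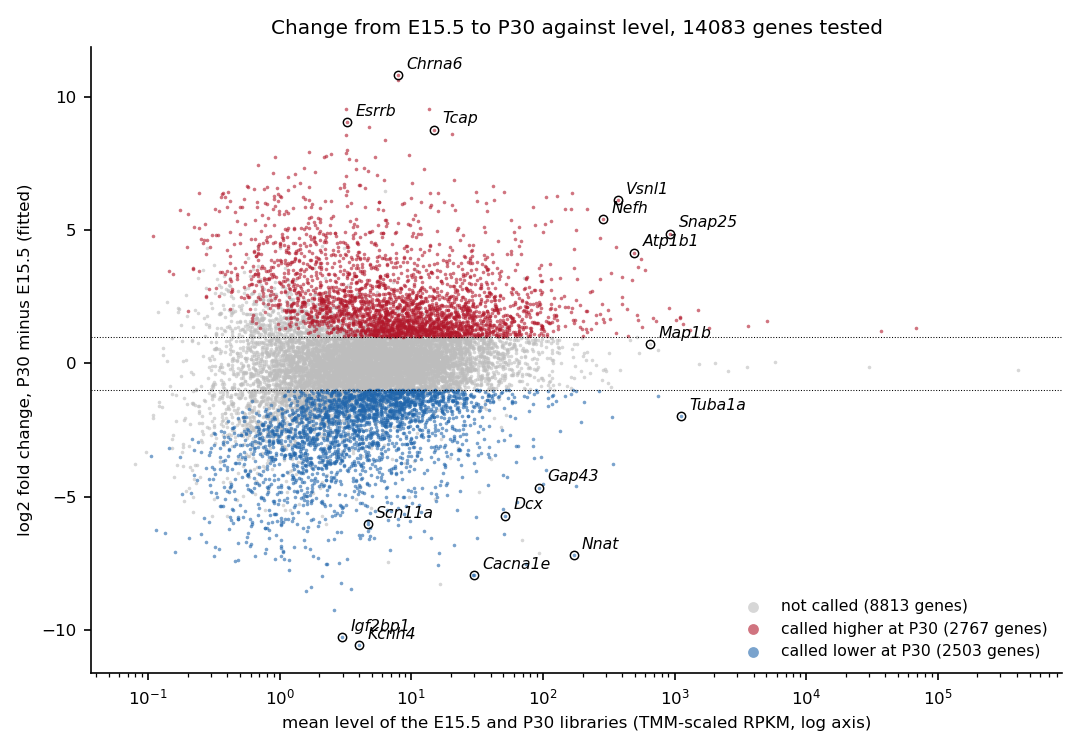
Each point is 1 of the 14083 genes tested, with its mean level over the 6 libraries on the x axis (log scale) and its fitted log2 fold change from E15.5 to P30 on the y axis, coloured by call. The 2767 genes called higher lie above 1 and the 2503 called lower lie below -1 over the whole range of levels.

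The genes with the smallest adjusted p in the rising direction were *Snap25*, *Ndrg4*, *Map1a*, *Nsf*, *Unc80* and *Kcna2*. *Snap25*, a SNARE protein that drives vesicle fusion, was measured at 62.8, 62.0 and 60.6 RPKM at E15.5 and 1879, 1573 and 1916 RPKM at P30 (log2 fold change 4.86 ± 0.15, adjusted p = 1.8e-12). *Nsf*, the ATPase that takes used SNARE complexes apart, stood at 6.88, 10.2 and 5.75 RPKM at E15.5 and 116, 120.1 and 147 RPKM at P30 (log2 fold change 4.09 ± 0.21, adjusted p = 1.3e-09). *Map1a*, a microtubule-associated protein of adult neurons, stood at 17.1, 31.5 and 14.8 RPKM at E15.5 and 550.4, 499.6 and 526 RPKM at P30 (log2 fold change 4.71 ± 0.23, adjusted p = 1.2e-09). In these 3 genes every P30 library was far above every E15.5 library, and the 3 P30 values were close to each other. *Ndrg4*, of the NDRG family, went from 79.6, 70.9 and 59.9 RPKM to 984, 1017 and 1132 RPKM (log2 fold change 3.91 ± 0.19, adjusted p = 1.2e-09). *Unc80*, an accessory subunit of the sodium leak channel, rose from 6.96, 4.90 and 5.04 RPKM at E15.5 to 48.0, 57.5 and 58.7 RPKM at P30 (log2 fold change 3.30 ± 0.17, adjusted p = 1.7e-09), and *Kcna2*, the Kv1.2 potassium channel, rose from 4.46, 9.48 and 3.69 RPKM at E15.5 to 120.2, 137 and 133 RPKM at P30 (log2 fold change 4.57 ± 0.25, adjusted p = 2.4e-09).

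The 6 genes with the smallest adjusted p among those that fell were *Dcx*, *Dpysl3*, *Nrep*, *Hip1*, *Crmp1* and *Kif21b*. *Dcx* (doublecortin), which binds the microtubules of migrating and extending neurons, was at 107.997, 80.7 and 117 RPKM at E15.5 and 2.25, 2.01 and 1.42 RPKM at P30 (log2 fold change -5.72 ± 0.26, adjusted p = 5.8e-10), so its lowest E15.5 library was far above its highest P30 library. *Dpysl3* and *Crmp1* encode collapsin response mediators, which pass guidance signals to the cytoskeleton. *Dpysl3* fell from 231, 239 and 226 RPKM at E15.5 to 46.6, 33.9 and 37.3 RPKM at P30 (log2 fold change -2.56 ± 0.15, adjusted p = 3.4e-09). *Crmp1* fell from 56.4, 56.6 and 55.0 RPKM at E15.5 to 7.06, 7.17 and 6.90 RPKM at P30 (log2 fold change -2.99 ± 0.18, adjusted p = 4.1e-09). The 3 libraries of an age differed by less than 2 RPKM for *Crmp1*. *Nrep*, a small protein linked to nerve regeneration, went from 793, 506 and 608 RPKM to 48.5, 44.5 and 41.1 RPKM (log2 fold change -3.79 ± 0.22, adjusted p = 3.6e-09), *Hip1*, an endocytic adaptor, from 55.0, 37.2 and 42.5 RPKM to 4.01, 2.68 and 2.61 RPKM (log2 fold change -3.81 ± 0.22, adjusted p = 3.8e-09), and *Kif21b*, a kinesin motor, from 49.99, 38.5 and 48.9 RPKM to 5.12, 7.38 and 6.47 RPKM (log2 fold change -2.88 ± 0.17, adjusted p = 4.4e-09).

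The largest rises were of genes that were close to absent at E15.5. Of the 12 largest, 3 encode acetylcholine receptors. *Chrna6*, the alpha6 nicotinic subunit, had no counts in the 3 E15.5 libraries and was at 14.998, 12.8 and 19.4 RPKM at P30, at least 297-fold higher when 3 counts per library are set for 0. *Chrnb3*, the beta3 subunit that assembles with alpha6, was at 0, 0.158 and 0.0429 RPKM at E15.5 and 26.6, 20.9 and 33.6 RPKM at P30 (log2 fold change 9.52 ± 1.63, adjusted p = 2.2e-04). *Chrm5*, the M5 muscarinic receptor, rose from 0, 2.85 and 0 RPKM at E15.5 to 36.99, 29.1 and 54.3 RPKM at P30 (log2 fold change 8.62 ± 1.85, adjusted p = 0.0014), with 1 E15.5 library above 0. *Chrnb3* (chr8:27368711-27399730) and *Chrna6* (chr8:27403212-27413944, GRCm38) are neighbours on chromosome 8 that are transcribed toward each other, and their age means were 0.0668, 0.520, 6.61, 10.1 and 27.0 and 0, 0.575, 6.58, 11.3 and 15.7 RPKM over the 5 ages in their order. *Esrrb*, an orphan nuclear receptor of the estrogen-related family, had 4 counts in all at E15.5 and stood at 6.04, 5.68 and 7.69 RPKM at P30 (log2 fold change 9.05 ± 1.68, adjusted p = 4.4e-04). *Ankrd34c*, an ankyrin repeat protein, rose from 0.0457, 0 and 0 RPKM at E15.5 to 12.9, 13.98 and 20.3 RPKM at P30 (log2 fold change 10.63 ± 1.86, adjusted p = 2.6e-04).

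*Tcap*, the titin cap protein of the sarcomere Z-disc, was at 0, 0.0481 and 0.0960 RPKM at E15.5 and 33.0, 16.7 and 38.9 RPKM at P30, and with 3 counts in all at E15.5 its ratio was 573 (95% counting interval 196 to 2783). *Myom3*, a myomesin of the M-band, was at 0.0207, 0 and 0.445 RPKM at E15.5 and 10.5, 9.58 and 17.4 RPKM at P30 (log2 fold change 8.38 ± 1.89, adjusted p = 0.0021). *Dusp27*, a relative of the dual-specificity phosphatases, rose from 0, 0.135 and 0.0674 RPKM at E15.5 to 6.18, 6.86 and 9.37 RPKM at P30 (log2 fold change 7.29 ± 1.21, adjusted p = 1.6e-04). All 3 were at or near 0 at E15.5. Their choice required CPM over 10 in all 3 libraries of 1 age and no overlap between the ages, so their presence in every P30 library was set by that choice. The rest of the 12 were *Mcf2*, a guanine exchange factor (log2 fold change 7.87 ± 1.54, adjusted p = 6.7e-04), *Plekhd1* (log2 fold change 7.81 ± 1.57, adjusted p = 8.7e-04) and the noncoding transcripts *Gm16551* (log2 fold change 7.85 ± 1.61, adjusted p = 0.001) and *Gm13446*. *Gm13446* had 1 count at E15.5 against 9.68, 7.27 and 11.5 RPKM at P30, a ratio of 607 (95% counting interval 168 to 5018). The call of *Tcap* was lost without E15.5 replicate 1, E15.5 replicate 2 or E15.5 replicate 3 or with sample quality weights.

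The largest falls ended near 0 as well. *Kcnh4*, a potassium channel of the ELK type, was at 7.46, 7.68 and 9.01 RPKM at E15.5 and had no counts at P30, at least 246-fold lower. *Igf2bp1*, an RNA-binding protein of embryonic tissues, fell from 5.24, 3.82 and 8.89 RPKM at E15.5 to 0.0126, 0 and 0 RPKM at P30 (log2 fold change -10.29 ± 1.69, adjusted p = 1.5e-04). *Cacna1e*, the pore of R-type calcium channels, was at 64.1, 36.8 and 78.1 RPKM at E15.5 and 0.628, 0.172 and 0.0726 RPKM at P30 (log2 fold change -7.94 ± 0.73, adjusted p = 4.2e-07). These falls were picked among genes with no overlap between the ages, so the separation of their libraries was set by that choice. *Ctxn1* (cortexin), a small membrane protein of neurons, fell from 167, 168 and 104 RPKM at E15.5 to 7.69, 0.505 and 0.0396 RPKM at P30 (log2 fold change -7.54 ± 1.14, adjusted p = 6.9e-05), with P30 replicate 1 above the other P30 libraries. *Fgd3*, a guanine exchange factor for Cdc42 (log2 fold change -9.25 ± 1.64, adjusted p = 3.0e-04), *Stk32b*, a kinase (log2 fold change -8.49 ± 1.29, adjusted p = 7.2e-05), *Igfbpl1* (log2 fold change -8.24 ± 1.45, adjusted p = 2.7e-04), *Ly6h* (log2 fold change -7.51 ± 1.29, adjusted p = 2.3e-04), *B3gnt5*, a glycosyltransferase (log2 fold change -7.24 ± 1.33, adjusted p = 3.9e-04), *Ifitm2*, an interferon-induced membrane protein (log2 fold change -7.56 ± 1.82, adjusted p = 0.0033), and *Igfbp4*, which binds insulin-like growth factors (log2 fold change -7.34 ± 2.73, adjusted p = 0.038), were also among the 12. In *Igf2bp1*, *Ly6h*, *Ifitm2*, *Igfbp4*, *Stk32b*, *Igfbpl1* and *Fgd3*, P30 replicate 1 was the single P30 library with counts. *Ctxn1* was no longer called with DESeq2. The call for *Igfbp4* did not hold without E15.5 replicate 1, E15.5 replicate 2, E15.5 replicate 3, P30 replicate 2 or P30 replicate 3, with DESeq2 or with edgeR.

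Highly expressed genes that stayed within 2-fold were led by *Map1b*, the microtubule-associated partner of *Map1a* in young neurons, at 521, 504 and 472 RPKM at E15.5 and 896, 726 and 824 RPKM at P30 (log2 fold change 0.71, 95% interval 0.46 to 0.97). *Hsp90ab1*, a constitutive chaperone, was at 662, 552 and 657 RPKM at E15.5 and 950.4, 782 and 894 RPKM at P30 (log2 fold change 0.50, 95% interval 0.26 to 0.74). The noncoding RNAs *Gm26917* (-0.03, 95% interval -0.52 to 0.46) and *Meg3* (-0.16, 95% interval -0.85 to 0.53) and the adhesion protein *Mdga1* (-0.37, 95% interval -0.72 to -0.01) completed the 5 of highest mean CPM, with log2 fold changes and 95% intervals in parentheses. *Shh*, whose locus drove the Cre, was at 2.09, 0.993 and 0.192 RPKM at E15.5 and 3.15, 1.54 and 1.62 RPKM at P30 and was not called (log2 fold change 1.59 ± 0.89, adjusted p = 0.15), with values that overlap between the ages.

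**Figure D2:**
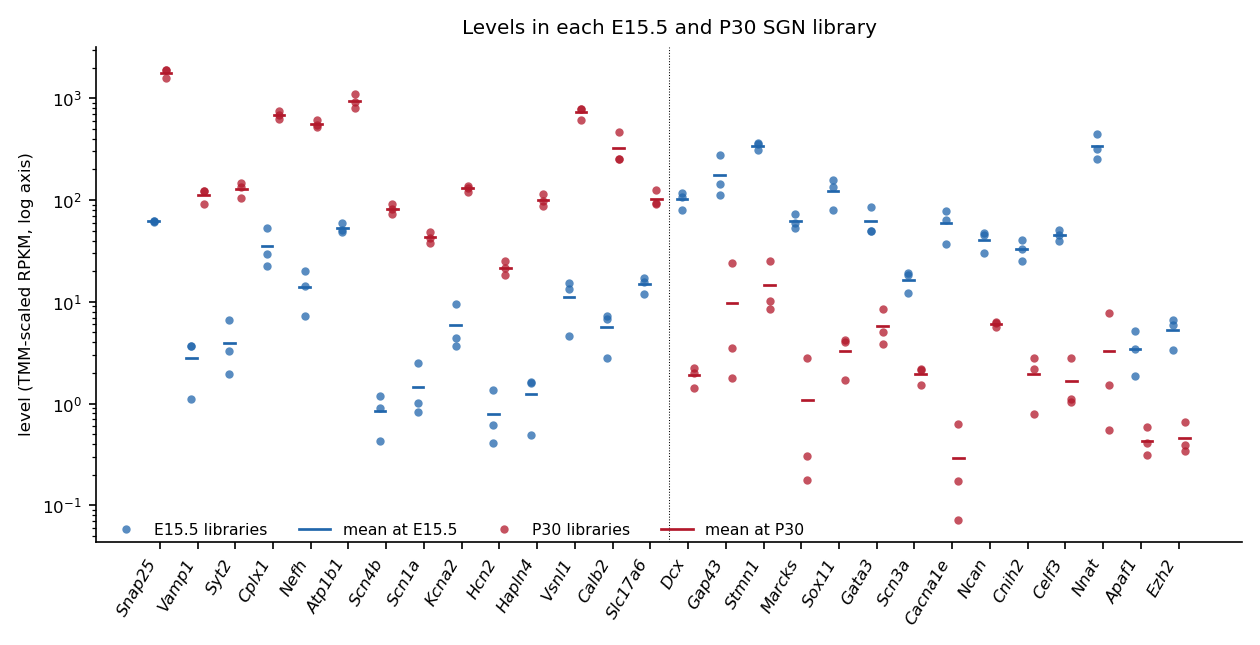
Points are the RPKM values of the 3 E15.5 and the 3 P30 libraries for 28 named genes (log axis), with genes that rose on one side and genes that fell on the other. For *Snap25* the P30 libraries lie between 1573 and 1916 RPKM and the E15.5 libraries between 60.6 and 62.8 RPKM, and for *Dcx* the order is turned.

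Of 45 listed transcription factors of neurons, 39 passed the CPM limit, of which 5 rose and 21 fell, with a median log2 fold change of -1.30. *Sox11*, an HMG-box factor of newborn neurons, fell from 159, 79.5 and 133 RPKM at E15.5 to 4.24, 4.001 and 1.72 RPKM at P30 (log2 fold change -5.21 ± 0.39, adjusted p = 4.7e-08). *Neurod1*, a bHLH factor needed for SGN survival and differentiation, was at 3.76, 7.38 and 15.9 RPKM at E15.5 and 0.212, 0.112 and 0.281 RPKM at P30 (log2 fold change -5.34 ± 1.23, adjusted p = 0.0024). *Insm1*, a zinc finger factor of nascent neurons, fell from 4.22, 1.74 and 6.43 RPKM at E15.5 to 0.295, 0.263 and 0 RPKM at P30 (log2 fold change -5.27 ± 1.21, adjusted p = 0.0023). Their E15.5 libraries differed several fold among themselves but stayed above the P30 libraries. *Gata3*, which guides SGN differentiation and axon paths, fell from 49.6, 50.1 and 85.7 RPKM at E15.5 to 8.45, 5.09 and 3.87 RPKM at P30 (log2 fold change -3.37 ± 0.35, adjusted p = 1.3e-06). *Runx1*, a runt-domain factor of sensory neuron subtypes, was at 16.3, 20.003 and 22.0 RPKM at E15.5 and 5.62, 4.97 and 4.85 RPKM at P30 (log2 fold change -1.91 ± 0.21, adjusted p = 2.4e-06). Among the 5 that rose, *Nr1d2*, a nuclear receptor of the circadian clock, rose from 4.17, 1.79 and 1.27 RPKM at E15.5 to 17.3, 25.8 and 27.1 RPKM at P30 (log2 fold change 3.49 ± 0.48, adjusted p = 2.7e-05). *Scrt1*, a zinc finger repressor of the Snail family, rose from 26.9, 25.5 and 23.4 RPKM at E15.5 to 72.1, 63.9 and 65.5 RPKM at P30 (log2 fold change 1.42 ± 0.25, adjusted p = 3.0e-04). *Prox1*, a homeobox factor, was at 10.8, 5.41 and 12.1 RPKM at E15.5 and 20.2, 24.0 and 15.996 RPKM at P30 (log2 fold change 1.17 ± 0.30, adjusted p = 0.0053), but its age means of 9.43, 62.6, 48.0, 40.8 and 20.1 RPKM were highest at P1 and lower at each later age. In the transcription factor list the rises numbered 3 with library size alone. The call of *Scrt1* was lost with library size alone. *Prox1* was no longer called without E15.5 replicate 2 or with library size alone.

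All 36 axon growth and microtubule genes listed were tested, and 10 rose, 17 fell and 9 were not called (median log2 fold change -0.71). The genes that fell included the classical growth cone substrates of protein kinase C. *Gap43* fell from 112, 276 and 143 RPKM at E15.5 to 23.8, 1.77 and 3.498 RPKM at P30 (log2 fold change -4.66 ± 0.70, adjusted p = 6.4e-05). *Marcks* fell from 59.6, 73.2 and 53.1 RPKM at E15.5 to 2.78, 0.176 and 0.308 RPKM at P30 (log2 fold change -6.57 ± 0.88, adjusted p = 2.2e-05). *Basp1* was at 156, 152 and 163 RPKM at E15.5 and 23.8, 10.6 and 7.43 RPKM at P30 (log2 fold change -3.55 ± 0.29, adjusted p = 1.3e-07). P30 replicate 1 was the highest P30 library in all 3, and it was still below each E15.5 library. *Stmn1* (stathmin), which takes microtubules apart, fell from 310.1, 358 and 359 RPKM at E15.5 to 25.4, 8.46 and 10.3 RPKM at P30 (log2 fold change -4.59 ± 0.37, adjusted p = 1.1e-07). Tubulins changed in both directions. *Tuba1a*, the main alpha-tubulin of the embryonic brain, fell from 1628, 2216 and 1502 RPKM at E15.5 to 666, 327 and 380.4 RPKM at P30 (log2 fold change -1.98 ± 0.23, adjusted p = 6.0e-06). *Tuba4a*, an adult isotype, was at 10.3, 7.18 and 9.56 RPKM at E15.5 and 88.2, 74.3 and 92.7 RPKM at P30 (log2 fold change 3.27 ± 0.24, adjusted p = 3.4e-08). Among beta-tubulins, *Tubb2b* fell from 175, 195.3 and 158 RPKM at E15.5 to 28.6, 8.29 and 11.8 RPKM at P30 (log2 fold change -3.51 ± 0.33, adjusted p = 4.5e-07). *Tubb5* fell from 261, 359.8 and 339 RPKM at E15.5 to 96.0, 52.9 and 61.4 RPKM at P30 (log2 fold change -2.20 ± 0.19, adjusted p = 2.0e-07). *Tubb4a* was at 98.7, 114.1 and 159.5 RPKM at E15.5 and 400.3, 223 and 277 RPKM at P30 (log2 fold change 1.28 ± 0.24, adjusted p = 5.7e-04). *Klc1*, a light chain of the kinesin motor, rose from 59.7, 67.7 and 58.5 RPKM at E15.5 to 152, 131 and 141 RPKM at P30 (log2 fold change 1.19 ± 0.15, adjusted p = 9.4e-06). All 17 genes that fell here were also called lower at P14 than at P1, in libraries that the comparison of E15.5 with P30 did not use, beside 6.89% of all genes called lower there. In the axon growth list the rises numbered 3 with library size alone. The call for *Tubb4a* did not hold without the 5 libraries numbered 1 or with library size alone. The call of *Klc1* was lost with library size alone.

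The 7 neurofilament and related intermediate filament genes had a median log2 fold change of -1.03, and 2 of them rose and 2 fell. *Nefh*, the heavy neurofilament of thick myelinated axons, rose from 7.34, 20.1 and 14.1 RPKM at E15.5 to 610.0, 541 and 525 RPKM at P30 (log2 fold change 5.40 ± 0.41, adjusted p = 5.7e-08). *Nefl*, the light chain, was at 381, 283 and 327 RPKM at E15.5 and 1083, 1063 and 1004 RPKM at P30 (log2 fold change 1.69 ± 0.15, adjusted p = 2.8e-07). *Nefm*, the medium chain, was at 334, 297 and 329.8 RPKM at E15.5 and 599.6, 570.3 and 604 RPKM at P30, with a log2 fold change of 0.89 ± 0.18 that fell short of 2-fold. The ages did not overlap for the 3 chains, and the P30 values were within a narrow range. *Ina* (alpha-internexin), the neurofilament partner of young neurons, fell from 402, 256 and 424 RPKM at E15.5 to 156, 174 and 188 RPKM at P30 (log2 fold change -1.03 ± 0.19, adjusted p = 4.8e-04). *Vim* (vimentin), a filament of immature cells, fell from 36.8, 35.7 and 29.4 RPKM at E15.5 to 7.398, 5.02 and 7.53 RPKM at P30 (log2 fold change -2.34 ± 0.55, adjusted p = 0.0029). *Prph* (peripherin), known from type II SGNs, was at 16.2, 179.6 and 6.93 RPKM at E15.5 and 83.7, 1.70 and 0.309 RPKM at P30 and was not called (log2 fold change -2.38 ± 1.76), and the 3 libraries of an age differed more than 10-fold and the ages overlapped. In the neurofilament list the falls numbered 1 without E15.5 replicate 1 or 3 or P30 replicate 1, with sample quality weights or without the 5 libraries numbered 1. Its median ranged from -1.04 (without P30 replicate 2) to -0.67 (without P30 replicate 3) when 1 library was left out and was -0.54 with a replicate block. *Ina* was no longer called without E15.5 replicate 1, E15.5 replicate 3 or P30 replicate 1, without the 5 libraries numbered 1, with no filter on low counts or with sample quality weights.

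Of 54 listed axon guidance genes, 51 passed the CPM limit, of which 6 rose and 26 fell, with a median log2 fold change of -1.52. *Unc5b*, a netrin receptor that mediates repulsion, was at 34.7, 26.8 and 46.7 RPKM at E15.5 and 1.77, 1.29 and 1.60 RPKM at P30 (log2 fold change -4.48 ± 0.41, adjusted p = 4.2e-07). *Neo1* (neogenin), a receptor for netrins and repulsive guidance molecules, fell from 104, 85.2 and 106 RPKM at E15.5 to 23.2, 21.9 and 26.5 RPKM at P30 (log2 fold change -2.04 ± 0.14, adjusted p = 1.7e-08). *Dcc*, the attractive netrin receptor, fell from 13.3, 8.25 and 8.87 RPKM at E15.5 to 0.865, 1.64 and 2.82 RPKM at P30 (log2 fold change -2.73 ± 0.39, adjusted p = 4.0e-05). All 3 were lower in each P30 library than in each E15.5 library. *Plxna3*, a semaphorin co-receptor, was at 24.0, 17.6 and 20.7 RPKM at E15.5 and 0.897, 0.589 and 0.426 RPKM at P30 (log2 fold change -5.00 ± 0.42, adjusted p = 1.5e-07). *Efna3*, an ephrin ligand, fell from 10.04, 5.32 and 8.92 RPKM at E15.5 to 0.100, 0.0419 and 0.0789 RPKM at P30 (log2 fold change -6.56 ± 1.03, adjusted p = 1.0e-04). *Cxcr4*, a chemokine receptor, fell from 5.20, 16.5 and 19.2 RPKM at E15.5 to 0.236, 0.226 and 0 RPKM at P30 (log2 fold change -7.02 ± 1.42, adjusted p = 8.8e-04). The 6 that rose included relatives of genes that fell. *Unc5a* was at 0.301, 1.18 and 0.0655 RPKM at E15.5 and 7.11, 10.5 and 10.97 RPKM at P30 (log2 fold change 4.95 ± 0.86, adjusted p = 2.5e-04). *Plxna2* rose from 1.82, 1.64 and 3.09 RPKM at E15.5 to 9.10, 8.03 and 11.7 RPKM at P30 (log2 fold change 2.16 ± 0.33, adjusted p = 7.4e-05). *Plxna4* rose from 19.2, 25.4 and 14.1 RPKM at E15.5 to 50.6, 38.5 and 53.3 RPKM at P30 (log2 fold change 1.32 ± 0.19, adjusted p = 3.6e-05). The call for *Plxna4* did not hold with library size alone.

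Channel subunits of 1 family moved in opposite directions. Among sodium channel subunits and partners, 14 of 17 listed were tested, and 6 rose, 4 fell and 4 were not called (median log2 fold change 0.03). *Scn1a* (Nav1.1) was at 0.832, 2.51 and 1.01 RPKM at E15.5 and 38.2, 42.5 and 48.5 RPKM at P30 (log2 fold change 5.00 ± 0.43, adjusted p = 2.1e-07). *Scn8a* (Nav1.6), the channel of mature nodes of Ranvier, rose from 7.17, 3.90 and 4.24 RPKM at E15.5 to 49.5, 62.0 and 59.0 RPKM at P30 (log2 fold change 3.55 ± 0.24, adjusted p = 1.8e-08). *Scn3a* (Nav1.3), the embryonic pore subunit, fell from 19.1, 12.1 and 18.5 RPKM at E15.5 to 2.19, 1.53 and 2.14 RPKM at P30 (log2 fold change -3.04 ± 0.33, adjusted p = 2.6e-06). The libraries of the 2 ages were well apart in all 3. *Scn11a* (Nav1.9) was at 9.47, 8.43 and 8.998 RPKM at E15.5 and 1.09, 0.0172 and 0.0567 RPKM at P30 (log2 fold change -6.03 ± 1.22, adjusted p = 9.2e-04). *Scn9a* (Nav1.7) fell from 18.1, 18.7 and 14.4 RPKM at E15.5 to 13.45, 3.19 and 4.10 RPKM at P30 (log2 fold change -1.48 ± 0.36, adjusted p = 0.0035). Both had their highest P30 value in replicate 1. *Scn2a* (Nav1.2) was at 6.20, 7.62 and 4.11 RPKM at E15.5 and 3.35, 4.21 and 4.08 RPKM at P30 and was not called (log2 fold change -0.60 ± 0.28). Beta subunits showed the same kind of opposition. *Scn4b*, which supports resurgent current, rose from 0.427, 0.897 and 1.19 RPKM at E15.5 to 73.6, 91.0 and 81.3 RPKM at P30 (log2 fold change 6.65 ± 0.53, adjusted p = 8.2e-08). *Scn3b* was at 30.4, 25.9 and 20.7 RPKM at E15.5 and 12.7, 1.41 and 0.659 RPKM at P30 (log2 fold change -3.12 ± 0.62, adjusted p = 7.5e-04). *Fgf12*, an intracellular partner of the pore, rose from 2.43, 7.69 and 6.12 RPKM at E15.5 to 252, 253 and 368 RPKM at P30 (log2 fold change 5.79 ± 0.44, adjusted p = 5.6e-08). The median of the sodium channel list ranged from -0.05 (without E15.5 replicate 3) to 0.13 (without P30 replicate 1) when 1 library was left out and was -0.01 with DESeq2 or counts thinned to equal depth or without mitochondrial genes, 0.17 without the 5 libraries numbered 1 and -0.43 with library size alone.

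The 43 potassium and HCN channel genes that were tested (of 49 listed) had a median log2 fold change of 2.49, and 27 of them rose and 2 fell. In Kv1 channels, which sit beside the nodes, *Kcna1* rose from 6.41, 11.5 and 13.3 RPKM at E15.5 to 84.3, 113 and 97.2 RPKM at P30 (log2 fold change 3.23 ± 0.26, adjusted p = 9.0e-08), and the cytoplasmic subunit *Kcnab2* was at 4.01, 7.92 and 5.93 RPKM at E15.5 and 106, 100.1 and 118 RPKM at P30 (log2 fold change 4.19 ± 0.27, adjusted p = 9.1e-09). Kv3 channels repolarize fast-spiking neurons. *Kcnc1* rose from 7.09, 6.61 and 11.04 RPKM at E15.5 to 79.3, 86.1 and 85.9 RPKM at P30 (log2 fold change 3.37 ± 0.18, adjusted p = 2.4e-09). The P30 values of these 3 genes were at least several times the highest E15.5 value. *Hcn2*, which carries the hyperpolarization-activated current, rose from 0.412, 0.614 and 1.35 RPKM at E15.5 to 18.2, 21.6 and 25.1 RPKM at P30 (log2 fold change 4.85 ± 0.59, adjusted p = 7.6e-06). *Kcnk1*, a pore of the leak type, was at 6.56, 3.18 and 9.38 RPKM at E15.5 and 103.01, 147 and 122 RPKM at P30 (log2 fold change 4.40 ± 0.46, adjusted p = 1.4e-06). *Kcnh2*, the ERG1 channel, rose from 13.9, 10.95 and 13.7 RPKM at E15.5 to 70.9, 64.3 and 79.1 RPKM at P30 (log2 fold change 2.49 ± 0.17, adjusted p = 2.6e-08). The 2 that fell, apart from *Kcnh4*, which was on no list, were *Kcna6* (log2 fold change -1.71 ± 0.32, adjusted p = 4.9e-04) and *Kcnt2*. *Kcnt2*, a sodium-activated channel, was at 0.854, 0.714 and 0.488 RPKM at E15.5 and 0.00880, 0 and 0 RPKM at P30, a ratio of 169 (95% counting interval 46.3 to 1401).

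Of 15 listed calcium channel subunits, 14 passed the CPM limit, of which 2 rose and 7 fell, with a median log2 fold change of -1.28. Besides *Cacna1e*, falls were found for *Cacna1b*, the N-type pore, at 26.0, 19.4 and 30.8 RPKM at E15.5 and 7.64, 4.04 and 3.49 RPKM at P30 (log2 fold change -2.32 ± 0.25, adjusted p = 2.7e-06), for *Cacna1h*, a T-type pore, at 21.9, 16.9 and 18.8 RPKM at E15.5 and 4.68, 0.554 and 0.344 RPKM at P30 (log2 fold change -3.98 ± 0.64, adjusted p = 1.3e-04), and for the auxiliary *Cacna2d1*, at 9.89, 7.42 and 9.36 RPKM at E15.5 and 1.92, 0.698 and 0.796 RPKM at P30 (log2 fold change -2.97 ± 0.37, adjusted p = 1.1e-05). *Cacna1a*, the P/Q-type pore of fast synapses, was at 14.2, 10.7 and 15.2 RPKM at E15.5 and 12.2, 12.1 and 9.88 RPKM at P30 and was not called (log2 fold change -0.21 ± 0.17), so its level lay below those of *Cacna1b* and *Cacna1e* at E15.5 and above both at P30. The 2 that rose were beta subunits, *Cacnb2* (log2 fold change 1.34 ± 0.34, adjusted p = 0.005) and *Cacnb4* (log2 fold change 1.13 ± 0.24, adjusted p = 0.0012). All 16 node and initial segment genes listed were tested, and 7 rose, 2 fell and 7 were not called (median log2 fold change 0.88). *Cntnap1* (Caspr), the axonal partner of paranodal glial loops, rose from 1.62, 5.82 and 1.59 RPKM at E15.5 to 21.3, 23.2 and 28.4 RPKM at P30 (log2 fold change 3.23 ± 0.45, adjusted p = 3.5e-05). *Cntnap2* (Caspr2), which holds Kv1 channels beside the paranode, was at 6.44, 4.34 and 5.40 RPKM at E15.5 and 26.8, 22.4 and 26.3 RPKM at P30 (log2 fold change 2.26 ± 0.20, adjusted p = 2.1e-07). *Lgi3*, a secreted partner of juxtaparanodal proteins, rose from 0.689, 0.774 and 0.629 RPKM at E15.5 to 50.1, 60.8 and 71.9 RPKM at P30 (log2 fold change 6.40 ± 0.69, adjusted p = 2.3e-06), and *Epb41l3* (protein 4.1B), which ties Caspr proteins to the cytoskeleton, rose from 13.7, 9.34 and 10.5 RPKM at E15.5 to 48.2, 48.6 and 47.8 RPKM at P30 (log2 fold change 2.14 ± 0.19, adjusted p = 2.5e-07). The ages were apart for these 4 genes. *Ank3* (ankyrin-G), the master scaffold of the initial segment, was at 33.2, 19.6 and 29.7 RPKM at E15.5 and 25.2, 21.9 and 20.7 RPKM at P30 and was not called (log2 fold change -0.23 ± 0.16). *Nrcam* was at 26.8, 17.4 and 32.7 RPKM at E15.5 and 9.98, 7.79 and 10.3 RPKM at P30 (log2 fold change -1.40 ± 0.22, adjusted p = 1.1e-04). In the calcium channel list the rises numbered 0 with library size alone, and 1 without E15.5 replicate 2. In the node list the falls numbered 1 without E15.5 replicate 1 or 2 or P30 replicate 1, 2 or 3, with counts thinned to equal depth or without the 5 libraries numbered 1. The call of *Cacnb2* was lost with library size alone. *Cacnb4* was no longer called without E15.5 replicate 2 or with library size alone.

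**Figure D3:**
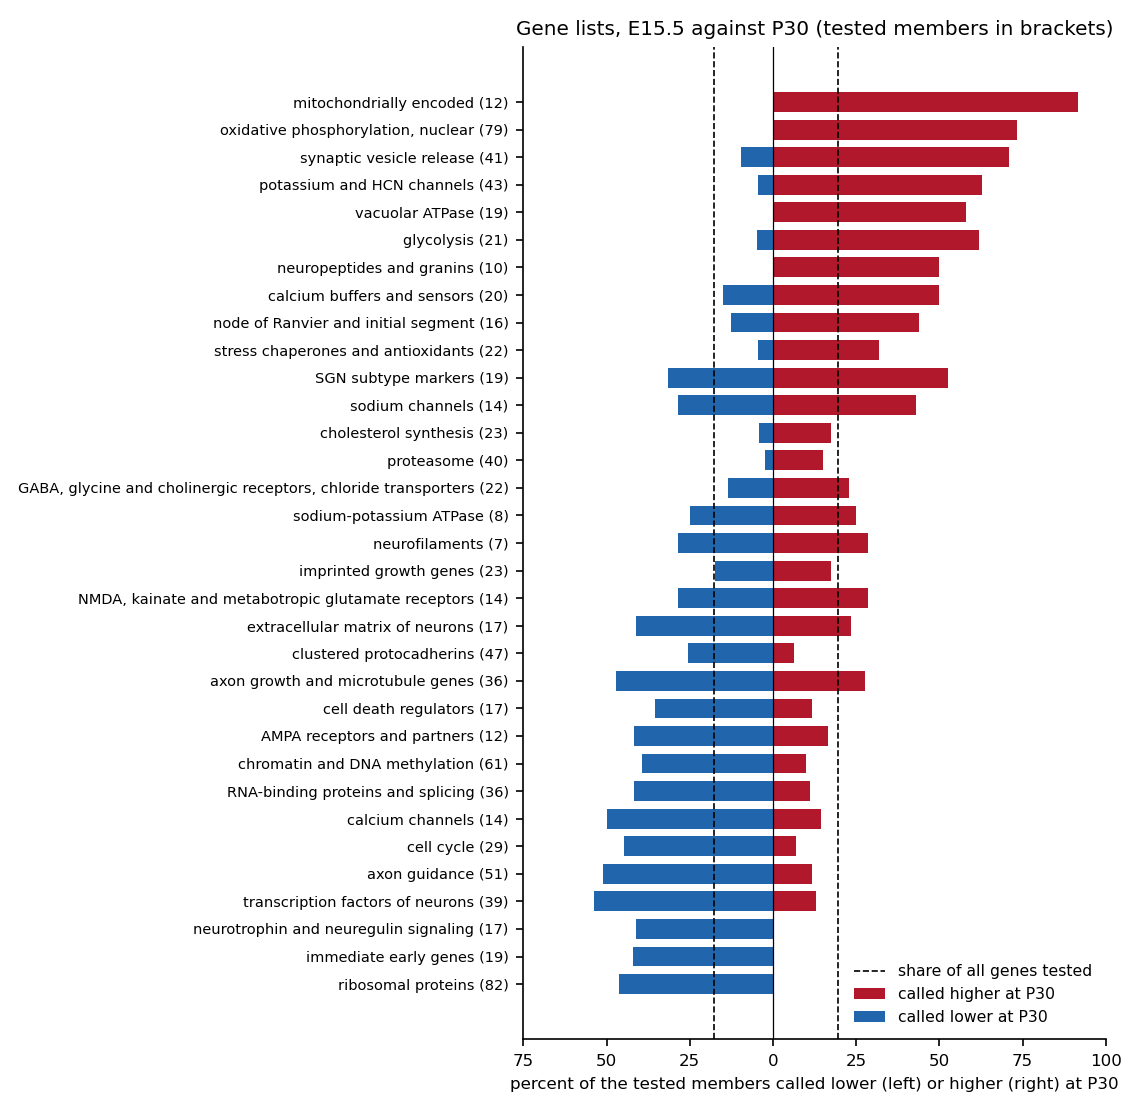
Bars give, for each gene list, the percent of its tested members called higher (to one side of 0) or lower (to the other) at P30 against E15.5, and dashed lines give the same shares over all genes tested. Nuclear-encoded oxidative phosphorylation genes (58 higher, 0 lower) and vesicle release genes (29 higher, 4 lower) lie at one end, and axon guidance (6 higher, 26 lower) and ribosomal proteins (0 higher, 38 lower) at the other.

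The 41 genes of synaptic vesicles and their release that were tested (of 45 listed) had a median log2 fold change of 2.30, and 29 of them rose and 4 fell. *Vamp1*, the vesicle SNARE of fast brainstem synapses, rose from 1.12, 3.64 and 3.71 RPKM at E15.5 to 91.8, 121 and 123 RPKM at P30 (log2 fold change 5.38 ± 0.42, adjusted p = 7.1e-08), whereas its relative *Vamp2* was at 50.8, 79.8 and 53.7 RPKM at E15.5 and 136, 69.7 and 133 RPKM at P30 and was not called (log2 fold change 0.86 ± 0.30). *Syt2*, the calcium sensor for fast release, rose from 1.97, 6.58 and 3.30 RPKM at E15.5 to 104, 133 and 148 RPKM at P30 (log2 fold change 5.10 ± 0.36, adjusted p = 3.0e-08). *Cplx1*, a complexin that clamps SNARE complexes, was at 29.3, 53.5 and 22.6 RPKM at E15.5 and 681, 619 and 755 RPKM at P30 (log2 fold change 4.37 ± 0.28, adjusted p = 8.4e-09). Both reached levels at P30 far above each E15.5 library. Both vesicular glutamate transporters of these cells rose. *Slc17a7* (VGLUT1) rose from 3.64, 8.19 and 1.65 RPKM at E15.5 to 55.4, 58.6 and 38.7 RPKM at P30 (log2 fold change 3.78 ± 0.48, adjusted p = 1.2e-05), with age means of 4.49, 25.05, 65.8, 86.2 and 50.9 RPKM, highest at P14. *Slc17a6* (VGLUT2) rose from 11.9, 15.6 and 17.0 RPKM at E15.5 to 93.1, 91.7 and 124.6 RPKM at P30 (log2 fold change 2.77 ± 0.27, adjusted p = 8.9e-07). The vesicle membrane proteins *Syngr1* and *Syp* (synaptophysin) and the vesicle tether *Syn1* rose with log2 fold changes of 5.71 ± 0.50, 2.35 ± 0.20 and 2.16 ± 0.24, and their libraries did not overlap between the ages. The 4 that fell were a syntaxin, a synaptotagmin, a complexin and a synapsin. *Stx1a* was at 4.51, 13.3 and 5.03 RPKM at E15.5 and 0.731, 0.0765 and 0.288 RPKM at P30 (log2 fold change -4.57 ± 1.00, adjusted p = 0.0016). *Syt5* fell from 7.68, 13.9 and 29.97 RPKM at E15.5 to 1.48, 0.129 and 0.0807 RPKM at P30 (log2 fold change -5.66 ± 1.22, adjusted p = 0.0015). *Cplx2* fell from 18.7, 25.9 and 13.9 RPKM at E15.5 to 6.21, 3.69 and 6.16 RPKM at P30 (log2 fold change -1.82 ± 0.31, adjusted p = 2.3e-04). *Syn3* was at 5.10, 4.45 and 7.07 RPKM at E15.5 and 2.07, 1.54 and 1.34 RPKM at P30 (log2 fold change -1.70 ± 0.29, adjusted p = 2.1e-04). Of the 29 that rose, 25 had a higher fitted mean at P14 than at P1 and 19 were called, beside 8.07% of all genes called higher there.

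Glutamate receptor genes moved less uniformly. Of 17 listed AMPA receptor subunits and partners, 12 passed the CPM limit, of which 2 rose and 5 fell, with a median log2 fold change of -0.40. *Gria2*, the subunit that makes the channel tight to calcium, rose from 6.39, 4.68 and 5.04 RPKM at E15.5 to 10.8, 17.4 and 15.4 RPKM at P30 (log2 fold change 1.41 ± 0.26, adjusted p = 4.6e-04), while *Gria3* and *Gria4* were not called (log2 fold changes 0.21 ± 0.24 and 0.38 ± 0.25) and overlapped between the ages. Auxiliary subunits divided. *Cacng7* (TARP gamma-7) rose from 23.9, 20.1 and 17.1 RPKM at E15.5 to 57.9, 51.8 and 52.5 RPKM at P30 (log2 fold change 1.44 ± 0.19, adjusted p = 2.0e-05). *Cacng4* (TARP gamma-4) was at 39.1, 29.5 and 26.1 RPKM at E15.5 and 1.41, 0 and 0.618 RPKM at P30 (log2 fold change -7.10 ± 1.52, adjusted p = 0.0014). *Cnih2* (cornichon-2) was at 40.2, 25.4 and 33.0 RPKM and *Shisa7* at 27.7, 21.6 and 17.0 RPKM at E15.5, and both fell as well (log2 fold changes -4.13 ± 0.57 and -5.31 ± 0.51). These 3 stood between 0 and 2.81 RPKM in the P30 libraries. Among NMDA, kainate, delta and metabotropic receptor genes, 14 of 20 listed were tested, and 4 rose, 4 fell and 6 were not called (median log2 fold change 0.08). *Grin1*, the obligate NMDA subunit, rose from 4.22, 3.99 and 3.69 RPKM at E15.5 to 21.03, 19.5 and 18.6 RPKM at P30 (log2 fold change 2.32 ± 0.19, adjusted p = 1.5e-07). *Grm7*, a presynaptic metabotropic receptor, rose from 0.713, 1.84 and 0.301 RPKM at E15.5 to 5.80, 6.33 and 4.19 RPKM at P30 (log2 fold change 2.86 ± 0.55, adjusted p = 6.1e-04). The juvenile NMDA subunits *Grin3a* (log2 fold change -2.40 ± 0.58, adjusted p = 0.0033) and *Grin2d* (log2 fold change -1.54 ± 0.40, adjusted p = 0.0052) fell. The 22 genes of inhibitory and cholinergic receptors and chloride transporters that were tested (of 30 listed) had a median log2 fold change of 0.11, and 5 of them rose and 3 fell. The shares that rose and fell were 22.7% and 13.6%, beside 19.6% and 17.8% of all genes tested. *Glrb*, the glycine receptor beta subunit, was at 0.619, 0.960 and 0.430 RPKM at E15.5 and 31.6, 41.2 and 47.9 RPKM at P30 (log2 fold change 5.93 ± 0.60, adjusted p = 1.2e-06). *Gabbr2*, of the GABA-B receptor, rose from 11.1, 13.2 and 9.59 RPKM at E15.5 to 67.3, 57.4 and 67.3 RPKM at P30 (log2 fold change 2.51 ± 0.18, adjusted p = 3.4e-08). *Gabra3* fell from 7.598, 6.18 and 4.20 RPKM at E15.5 to 0.528, 0.156 and 0.0489 RPKM at P30 (log2 fold change -4.95 ± 0.94, adjusted p = 5.4e-04). The chloride extruder *Slc12a5* (KCC2) was at 1.91, 0.477 and 0.507 RPKM at E15.5 and 1.51, 0.788 and 2.04 RPKM at P30 and the importer *Slc12a2* (NKCC1) at 11.2, 10.9 and 8.16 RPKM at E15.5 and 8.25, 5.68 and 6.52 RPKM at P30, and neither was called (log2 fold changes 0.92 ± 0.58 and -0.52 ± 0.28). In the AMPA receptor list the rises numbered 0 with library size alone. The median of the NMDA receptor list ranged from -0.35 (without E15.5 replicate 2) to 0.41 (without E15.5 replicate 3) when 1 library was left out and was -0.23 with DESeq2, -0.19 with edgeR, 0.29 without the 5 libraries numbered 1, -0.36 with library size alone and -0.15 with a replicate block. In the inhibitory and cholinergic list the falls numbered 1 without E15.5 replicate 2 or 3 or with the 6 libraries alone, and 6 with library size alone. Its median ranged from 0.00 (without E15.5 replicate 3) to 0.26 (without P30 replicate 2) when 1 library was left out and was 0.32 with DESeq2, 0.35 with edgeR and -0.36 with library size alone. The calls of *Gria2* and *Cacng7* were lost with library size alone.

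Of the 20 calcium buffers and sensors, each of which was tested, 10 rose and 3 fell, with a median log2 fold change of 1.70. *Vsnl1* (visinin-like 1) was at 4.61, 15.45 and 13.4 RPKM at E15.5 and 788, 609 and 793 RPKM at P30 (log2 fold change 6.12 ± 0.42, adjusted p = 2.2e-08). *Calb2* (calretinin) rose from 2.84, 7.32 and 6.79 RPKM at E15.5 to 251, 469 and 250.2 RPKM at P30 (log2 fold change 5.79 ± 0.57, adjusted p = 8.5e-07). *S100b* rose from 4.56, 17.4 and 1.81 RPKM at E15.5 to 185, 191 and 223 RPKM at P30 (log2 fold change 5.22 ± 0.64, adjusted p = 8.0e-06). Each of the 3 had its lowest P30 library at least 10 times above its highest E15.5 library. *Pvalb* (parvalbumin) was already at 113, 150.1 and 139 RPKM at E15.5 and stood at 319.6, 459.8 and 548 RPKM at P30 (log2 fold change 1.66 ± 0.27, adjusted p = 1.4e-04). *Calb1* (calbindin) was at 0.801, 0.922 and 3.30 RPKM at E15.5 and 6.32, 31.0 and 23.9 RPKM at P30 (log2 fold change 3.45 ± 0.86, adjusted p = 0.0041). The neuronal calcium sensors *Hpca* (log2 fold change -3.87 ± 0.93, adjusted p = 0.0033) and *Hpcal1* (log2 fold change -2.48 ± 0.45, adjusted p = 3.7e-04) and the kinase *Camk4* fell, the last with age means of 44.8, 93.8, 38.9, 15.1 and 6.94 RPKM (log2 fold change -2.64 ± 0.26, adjusted p = 9.6e-07). Among SGN subtype markers, 19 of 21 listed were tested, and 10 rose, 6 fell and 3 were not called (median log2 fold change 1.12). These markers are used to tell apart classes of adult SGNs, and pooled cells do not show how many cells of a class express them. *Lypd1*, a marker of 1 type I class, rose from 28.4, 15.2 and 33.7 RPKM at E15.5 to 53.5, 74.9 and 93.2 RPKM at P30 (log2 fold change 1.55 ± 0.32, adjusted p = 0.0011). Without the 5 libraries numbered 1, 8 of these markers rose. In the subtype marker list the falls numbered 3 without the 5 libraries numbered 1. The list median ranged from 0.66 (without E15.5 replicate 3) to 1.24 (without P30 replicate 3) when 1 library was left out and was 0.56 with DESeq2 and 0.60 with edgeR.

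**Figure D4:**
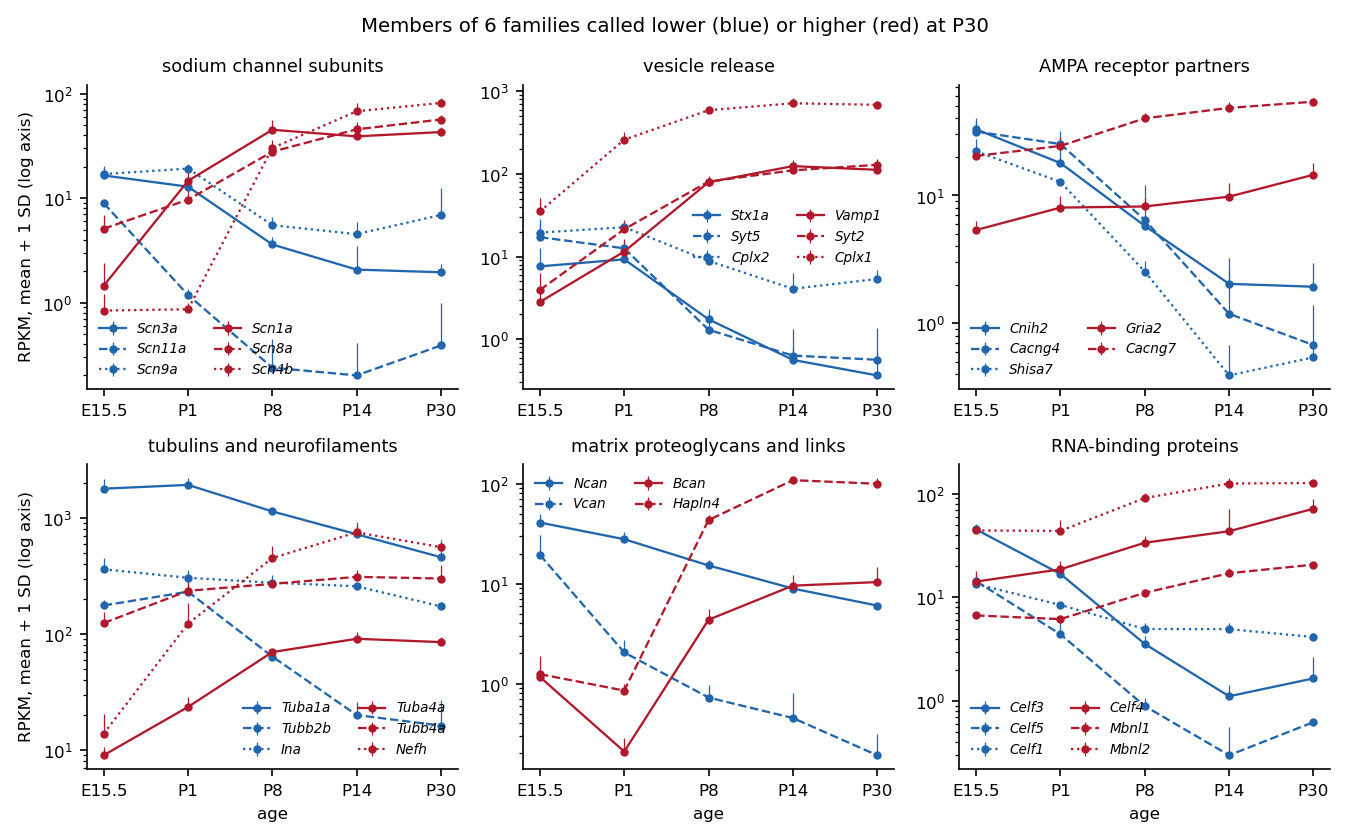
Lines join the mean RPKM of the 5 ages (log axis, with 1 SD drawn upward, n = 3 libraries per age) for members of 6 families that moved apart, in blue where called lower and in red where called higher at P30. In each panel members that fell, such as *Scn3a*, *Stx1a*, *Cnih2*, *Tuba1a*, *Ncan* and *Celf3*, stand beside members that rose, such as *Scn1a*, *Vamp1*, *Cacng7*, *Tuba4a*, *Hapln4* and *Celf4*.

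The 17 genes of the neuronal extracellular matrix that were tested (of 21 listed) had a median log2 fold change of -0.61, and 4 of them rose and 7 fell. *Hapln4*, the link protein of the perinodal matrix, rose from 0.495, 1.64 and 1.59 RPKM at E15.5 to 86.8, 114.1 and 98.4 RPKM at P30 (log2 fold change 6.41 ± 0.44, adjusted p = 2.4e-08). *Bcan* (brevican) was at 1.36, 1.16 and 0.974 RPKM at E15.5 and 6.68, 15.02 and 9.33 RPKM at P30 (log2 fold change 3.03 ± 0.53, adjusted p = 2.6e-04). Their relatives of the young matrix went the other way. *Ncan* (neurocan) fell from 46.9, 30.5 and 45.0 RPKM at E15.5 to 6.27, 6.20 and 5.62 RPKM at P30 (log2 fold change -2.72 ± 0.22, adjusted p = 1.3e-07). *Vcan* (versican) fell from 17.6, 9.23 and 31.3 RPKM at E15.5 to 0.329, 0.120 and 0.126 RPKM at P30 (log2 fold change -6.54 ± 0.99, adjusted p = 7.0e-05). *Nell2*, a secreted guidance and adhesion protein, was at 13.4, 14.8 and 18.3 RPKM at E15.5 and 0.899, 0.0301 and 0.397 RPKM at P30 (log2 fold change -5.84 ± 1.04, adjusted p = 3.1e-04). *Hapln4* had age means of 1.24, 0.850, 43.2, 108.4 and 99.8 RPKM and *Ncan* of 40.8, 27.8, 15.2, 8.92 and 6.03 RPKM. Of 23 listed neurotrophin and neuregulin signaling genes, 17 passed the CPM limit, of which 0 rose and 7 fell, with a median log2 fold change of -0.14. *Ntrk3* (TrkC) and *Ntrk2* (TrkB), the receptors through which SGNs are kept alive, stayed within 2-fold. *Ntrk3* was at 35.0, 27.3 and 26.5 RPKM at E15.5 and 22.8, 27.2 and 30.6 RPKM at P30 (log2 fold change -0.14, 95% interval -0.49 to 0.20), and *Ntrk2* was at 18.3, 14.95 and 23.0 RPKM at E15.5 and 28.2, 26.6 and 29.1 RPKM at P30 (log2 fold change 0.60, 95% interval 0.28 to 0.92). *Gfra1*, a co-receptor for GDNF, fell from 25.8, 13.7 and 29.2 RPKM at E15.5 to 2.60, 0.494 and 0.298 RPKM at P30 (log2 fold change -4.66 ± 0.91, adjusted p = 6.8e-04). *Igf1r* fell from 13.4, 15.52 and 9.59 RPKM at E15.5 to 5.18, 4.35 and 3.75 RPKM at P30 (log2 fold change -1.50 ± 0.28, adjusted p = 5.1e-04). *Nrg3*, a neuregulin, was at 28.9, 19.4 and 18.4 RPKM at E15.5 and 6.67, 7.64 and 4.70 RPKM at P30 (log2 fold change -1.78 ± 0.23, adjusted p = 1.3e-05). In the matrix list the rises numbered 2 without the 5 libraries numbered 1. Its median log2 fold change ranged from -1.40 (without E15.5 replicate 1) to 0.75 (without E15.5 replicate 2) when 1 library was left out and was -2.14 with DESeq2, -2.10 with edgeR, -1.91 without the 5 libraries numbered 1, -0.30 with a replicate block and -0.31 with counts thinned to equal depth. In the neurotrophin list the rises numbered 1 without E15.5 replicate 2. Its median ranged from -1.24 (without E15.5 replicate 3) to -0.12 (without E15.5 replicate 2) when 1 library was left out and was -1.31 with DESeq2, -1.27 with edgeR, -1.06 without the 5 libraries numbered 1 and -0.37 with sample quality weights.

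Genes of energy supply rose together in number. All 21 glycolysis genes listed were tested, and 13 rose, 1 fell and 7 were not called (median log2 fold change 1.82). *Aldoc* rose from 1.27, 3.33 and 4.77 RPKM at E15.5 to 46.0, 49.3 and 47.4 RPKM at P30 (log2 fold change 4.03 ± 0.40, adjusted p = 1.0e-06). *Aldoa*, the aldolase of most tissues, rose from 21.6, 41.9 and 18.96 RPKM at E15.5 to 302, 299 and 341 RPKM at P30 (log2 fold change 3.59 ± 0.22, adjusted p = 5.0e-09). *Eno2*, the neuronal enolase, was at 15.1, 17.0 and 15.02 RPKM at E15.5 and 197, 219.7 and 216 RPKM at P30 (log2 fold change 3.74 ± 0.23, adjusted p = 7.0e-09). The isoenzymes of 2 steps differed. *Pfkm*, a phosphofructokinase, rose from 3.96, 11.02 and 9.11 RPKM at E15.5 to 66.2, 105 and 93.5 RPKM at P30 (log2 fold change 3.46 ± 0.38, adjusted p = 2.4e-06). *Pfkp*, another isoenzyme, fell from 34.6, 30.5 and 37.2 RPKM at E15.5 to 15.8, 15.4 and 13.7 RPKM at P30 (log2 fold change -1.18 ± 0.18, adjusted p = 9.4e-05). *Ldhb*, the lactate dehydrogenase of oxidative tissue, was at 58.2, 61.8 and 115 RPKM at E15.5 and 589.7, 736 and 849 RPKM at P30 (log2 fold change 3.23 ± 0.28, adjusted p = 1.8e-07). *Ldha* was at 11.3, 45.6 and 16.5 RPKM at E15.5 and 32.2, 4.35 and 4.18 RPKM at P30 and was not called (log2 fold change -1.10 ± 0.66). *Atp1b1*, a beta subunit of the sodium pump, rose from 50.6, 59.6 and 48.4 RPKM at E15.5 to 919, 811 and 1089 RPKM at P30 (log2 fold change 4.15 ± 0.32, adjusted p = 5.9e-08). The 8 sodium pump genes that were tested (of 10 listed) had a median log2 fold change of -0.34, and 2 of them rose and 2 fell. The shares that rose and fell were 25% and 25%, beside 19.6% and 17.8% of all genes tested. Of 26 listed vacuolar ATPase genes, 19 passed the CPM limit, of which 11 rose and 0 fell, with a median log2 fold change of 1.33. *Atp6v1a*, the catalytic subunit that fills vesicles with protons, rose from 23.5, 28.3 and 21.4 RPKM at E15.5 to 91.0, 100.7 and 120.4 RPKM at P30 (log2 fold change 2.08 ± 0.18, adjusted p = 2.1e-07). In the glycolysis list the falls numbered 2 without P30 replicate 1 or without the 5 libraries numbered 1. In the sodium pump list the falls numbered 0 without P30 replicate 2 or 3 or with the 6 libraries alone, DESeq2 or edgeR, 1 without E15.5 replicate 1 or 2 or with a replicate block, and 4 without the 5 libraries numbered 1. The list median ranged from -1.72 (without P30 replicate 1) to 0.16 (without P30 replicate 3) when 1 library was left out and was 0.20 with DESeq2, 0.24 with edgeR, -1.52 without the 5 libraries numbered 1, -0.11 with a replicate block, -0.93 with sample quality weights and -0.63 with counts thinned to equal depth. In the vacuolar ATPase list the rises numbered 7 with library size alone.

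Among nuclear-encoded oxidative phosphorylation genes, 79 of 84 listed were tested, and 58 rose, 0 fell and 21 were not called (median log2 fold change 1.49). *Sdha*, of complex II, was at 23.6, 30.04 and 39.2 RPKM at E15.5 and 134, 149 and 160.2 RPKM at P30 (log2 fold change 2.26 ± 0.23, adjusted p = 1.5e-06). *Cox5a*, of complex IV, rose from 7.42, 9.66 and 7.41 RPKM at E15.5 to 34.6, 39.3 and 39.1 RPKM at P30 (log2 fold change 2.19 ± 0.23, adjusted p = 1.9e-06). *Ndufv2*, of complex I, rose from 5.10, 16.04 and 4.98 RPKM at E15.5 to 34.8, 38.1 and 54.6 RPKM at P30 (log2 fold change 2.43 ± 0.39, adjusted p = 1.2e-04). No library of E15.5 reached the lowest P30 library in these 3 genes. All 58 that rose also had a higher fitted mean at P14 than at P1, and 16 of them were called there, beside 8.07% of all genes. The 12 mitochondrially encoded genes that were tested (of 13 listed) had a median log2 fold change of 1.91, and 11 of them rose and 0 fell. *mt-Nd1* was at 534, 598 and 678 RPKM at E15.5 and 2626, 1942 and 2635 RPKM at P30 (log2 fold change 1.99 ± 0.16, adjusted p = 8.9e-08). *mt-Nd5* rose from 265, 448 and 334 RPKM at E15.5 to 1777, 1028 and 1581 RPKM at P30 (log2 fold change 2.07 ± 0.24, adjusted p = 4.9e-06). The ribosomal RNA *mt-Rnr2* took 6.63% to 9.01% of all counts at E15.5 and 12.5% to 15.3% at P30. In the mitochondrial list the rises numbered 7 with sample quality weights.

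NRF1 is a factor known to bind promoters of respiratory chain genes. Its core motif GCATGCGC, 1 of several motifs searched, was looked for on both strands in the 250 bases before the RefSeq start of these genes. It was found in 8 of 65 promoters (12.3%), beside 502 of 9911 promoters of all genes tested (5.07%). The 4 of the 8 with the largest rises were *Ndufa6* (log2 fold change 2.10 ± 0.46, adjusted p = 0.0017), *Ndufa8* (log2 fold change 1.79 ± 0.28, adjusted p = 9.7e-05), *Ndufa11* (log2 fold change 1.72 ± 0.32, adjusted p = 4.8e-04) and *Cox6a1* (log2 fold change 1.18 ± 0.26, adjusted p = 0.0015), and *Atp5k* was also called. *Atp5l*, *Sdhb* and *Atp5g2* hold the motif and were not called. The sequences of the 4 promoters are shown on the transcribed strand, from RefSeq on GRCm38.p6, with the motif, or 2 overlapping copies on opposite strands, in capitals. They show that the motif lay at different distances from the start.
*Ndufa6*, chr15:82354292-82354541, minus strand: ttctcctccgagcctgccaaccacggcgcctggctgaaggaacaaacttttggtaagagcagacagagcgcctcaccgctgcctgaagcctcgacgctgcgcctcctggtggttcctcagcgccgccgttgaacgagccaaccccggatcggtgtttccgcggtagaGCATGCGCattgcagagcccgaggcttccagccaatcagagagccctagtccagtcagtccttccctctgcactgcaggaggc
*Ndufa8*, chr2:36049339-36049588, minus strand: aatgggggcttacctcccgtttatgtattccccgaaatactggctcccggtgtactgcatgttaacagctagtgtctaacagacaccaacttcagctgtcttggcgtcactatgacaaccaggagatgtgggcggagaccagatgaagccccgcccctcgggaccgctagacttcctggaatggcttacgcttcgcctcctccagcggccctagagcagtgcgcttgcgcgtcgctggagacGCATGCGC
*Ndufa11*, chr17:56717512-56717761, plus strand: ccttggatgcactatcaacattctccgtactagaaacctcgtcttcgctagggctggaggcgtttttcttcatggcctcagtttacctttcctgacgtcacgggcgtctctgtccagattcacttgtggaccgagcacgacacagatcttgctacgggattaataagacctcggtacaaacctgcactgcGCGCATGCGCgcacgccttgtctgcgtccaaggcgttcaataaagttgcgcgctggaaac
*Cox6a1*, chr5:115348959-115349208, minus strand: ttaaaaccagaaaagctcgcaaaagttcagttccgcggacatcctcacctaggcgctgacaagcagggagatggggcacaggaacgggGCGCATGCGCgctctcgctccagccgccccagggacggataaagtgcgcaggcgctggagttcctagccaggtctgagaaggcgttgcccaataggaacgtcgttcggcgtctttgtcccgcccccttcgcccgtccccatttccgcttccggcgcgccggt
The first base of the motif lay 83 bases before the start in *Ndufa6*, 8 in *Ndufa8*, 60 in *Ndufa11* and 162 in *Cox6a1*. A match is a description of the letters and was not tested as a binding site. The same motif was in 4.20% of the promoters of genes that rose and 4.47% of those that fell, and the E-box CAGCTG was in 16.1% and 15.8% of them, beside 14.2% of all. In 32 promoters of vesicle release genes the E-box was found in 10. The ERR element, E2F site, REST half-site, CRE and TATA box were searched as well, and other lists too. In the 65 oxidative phosphorylation promoters these were found in 1, 0, 1, 4 and 5, and the E-box in 6. In 20 axon growth promoters the TATA box was found in 6, beside 7.59% of all. The pairs of motif and list given here are only some of those searched. The call of *Cox6a1* was lost without E15.5 replicate 1 or with library size alone. *Atp5k* was no longer called with library size alone.

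Of 63 listed genes of chromatin and DNA methylation, 61 passed the CPM limit, of which 6 rose and 24 fell, with a median log2 fold change of -0.83. *Ezh2*, the histone H3 lysine methyltransferase of dividing and young cells, fell from 5.87, 3.39 and 6.64 RPKM at E15.5 to 0.342, 0.657 and 0.388 RPKM at P30 (log2 fold change -3.54 ± 0.61, adjusted p = 2.2e-04), while its paralog *Ezh1* was at 3.61, 3.22 and 5.47 RPKM at E15.5 and 9.07, 10.3 and 9.08 RPKM at P30 (log2 fold change 1.23 ± 0.28, adjusted p = 0.002). *Kdm6b*, a demethylase of the same mark, fell from 16.7, 23.0 and 17.4 RPKM at E15.5 to 3.38, 2.23 and 2.68 RPKM at P30 (log2 fold change -2.75 ± 0.31, adjusted p = 3.5e-06). At P30 *Ezh1* was thus above *Ezh2* in every library, and at E15.5 the libraries of the pair overlapped. *Tet2* and *Tet3* encode enzymes that oxidize methylcytosine. *Tet2* fell from 8.53, 7.95 and 12.04 RPKM at E15.5 to 1.87, 2.50 and 2.43 RPKM at P30 (log2 fold change -2.09 ± 0.22, adjusted p = 1.9e-06). *Tet3* was at 18.1, 15.2 and 15.4 RPKM at E15.5 and 4.62, 4.14 and 3.96 RPKM at P30 (log2 fold change -1.92 ± 0.20, adjusted p = 2.0e-06). *Dnmt3a*, which sets methylation, was at 9.01, 13.3 and 11.9 RPKM at E15.5 and 7.48, 8.79 and 7.56 RPKM at P30 and was not called (log2 fold change -0.53 ± 0.17), but its age means of 11.4, 25.5, 47.8, 32.6 and 7.94 RPKM had their highest value at P8. In the chromatin list the rises numbered 3 with library size alone. There the falls numbered 37 with library size alone. The call for *Ezh1* did not hold with library size alone.

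Among RNA-binding and splicing genes, 36 of 39 listed were tested, and 4 rose, 15 fell and 17 were not called (median log2 fold change -0.63). The CELF family split. *Celf3* fell from 50.3, 39.5 and 45.8 RPKM at E15.5 to 2.84, 1.11 and 1.03 RPKM at P30 (log2 fold change -4.79 ± 0.35, adjusted p = 3.6e-08). *Celf5* fell from 13.4, 16.8 and 12.8 RPKM at E15.5 to 0.671, 0.642 and 0.569 RPKM at P30 (log2 fold change -4.49 ± 0.61, adjusted p = 2.2e-05). *Celf4* was at 18.0, 10.7 and 13.9 RPKM at E15.5 and 73.3, 53.6 and 87.9 RPKM at P30 (log2 fold change 2.36 ± 0.36, adjusted p = 8.2e-05). *Mbnl1* and *Mbnl2*, muscleblind factors that turn splicing toward the adult pattern in many tissues, rose. *Mbnl1* rose from 7.17, 6.73 and 6.21 RPKM at E15.5 to 19.8, 21.7 and 20.7 RPKM at P30 (log2 fold change 1.63 ± 0.14, adjusted p = 2.5e-07). *Mbnl2* rose from 48.3, 39.8 and 44.5 RPKM at E15.5 to 127.4, 126 and 126 RPKM at P30 (log2 fold change 1.53 ± 0.17, adjusted p = 3.6e-06). The 3 libraries of an age differed little for the pair. *Msi1* (musashi), of neural progenitors, was at 8.39, 12.9 and 10.6 RPKM at E15.5 and 2.79, 2.83 and 1.75 RPKM at P30 (log2 fold change -2.12 ± 0.48, adjusted p = 0.0023). *Lin28b*, which blocks let-7 processing, fell from 6.12, 5.63 and 6.94 RPKM at E15.5 to 1.91, 2.55 and 2.06 RPKM at P30 (log2 fold change -1.55 ± 0.23, adjusted p = 5.2e-05). *Rbfox3*, the NeuN antigen, was at 11.8, 22.0 and 11.1 RPKM at E15.5 and 17.4, 11.9 and 19.3 RPKM at P30 and was not called (log2 fold change 0.16 ± 0.28).

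The 29 cell cycle genes that were tested (of 40 listed) had a median log2 fold change of -2.27, and 2 of them rose and 13 fell. *Cdk4* fell from 19.9, 32.7 and 29.0 RPKM at E15.5 to 4.54, 4.71 and 5.11 RPKM at P30 (log2 fold change -2.51 ± 0.31, adjusted p = 9.8e-06). *Mcm6*, of the replication helicase, was at 4.26, 6.25 and 7.67 RPKM at E15.5 and 0.666, 0.372 and 0.165 RPKM at P30 (log2 fold change -4.02 ± 0.76, adjusted p = 5.4e-04). *Cdkn1c*, a cell cycle inhibitor that is imprinted, fell from 42.0, 99.7 and 41.4 RPKM at E15.5 to 2.08, 0.7504 and 0.541 RPKM at P30 (log2 fold change -5.77 ± 0.81, adjusted p = 3.5e-05). *Cdkn1b*, another inhibitor, rose from 7.54, 9.07 and 9.99 RPKM at E15.5 to 18.8, 29.9 and 20.3 RPKM at P30 (log2 fold change 1.31 ± 0.29, adjusted p = 0.0017). *Mki67*, the marker of proliferating cells, was at 3.82, 4.26 and 0.855 RPKM at E15.5 and 0.436, 0.112 and 0.105 RPKM at P30 and was not called (log2 fold change -3.59 ± 1.70). Its level differed more between the E15.5 libraries than for *Cdk4*. Of 21 listed cell death regulators, 17 passed the CPM limit, of which 2 rose and 6 fell, with a median log2 fold change of -0.48. *Apaf1*, the scaffold of the apoptosome, was at 1.89, 5.12 and 3.44 RPKM at E15.5 and 0.310, 0.407 and 0.585 RPKM at P30 (log2 fold change -3.04 ± 0.51, adjusted p = 2.0e-04). *Bcl2l2* (BCL-W), a survival factor, rose from 5.45, 4.39 and 4.78 RPKM at E15.5 to 32.6, 33.2 and 43.8 RPKM at P30 (log2 fold change 2.90 ± 0.25, adjusted p = 2.0e-07). The ages did not overlap for this pair. Among imprinted genes, 23 of 25 listed were tested, and 4 rose, 4 fell and 15 were not called (median log2 fold change -0.38). The shares that rose and fell, 17.4% and 17.4%, were close to the 19.6% and 17.8% of all genes tested. *Nnat* (neuronatin) fell from 318, 451 and 251 RPKM at E15.5 to 7.83, 1.53 and 0.551 RPKM at P30 (log2 fold change -7.21 ± 0.74, adjusted p = 1.3e-06). *Nap1l5*, also imprinted, was at 2.85, 7.57 and 7.06 RPKM at E15.5 and 235, 182 and 262 RPKM at P30 (log2 fold change 5.32 ± 0.48, adjusted p = 3.6e-07). In the cell cycle list the rises numbered 1 without E15.5 replicate 1 or 3, with DESeq2, edgeR, library size alone or sample quality weights or without the 5 libraries numbered 1. In the cell death list the rises numbered 1 without E15.5 replicate 1 or 2 or with library size alone. Its median log2 fold change ranged from -0.56 (without P30 replicate 2) to -0.19 (without P30 replicate 1) when 1 library was left out and was -0.24 with sample quality weights and -0.32 with counts thinned to equal depth. The median of the imprinted gene list ranged from -0.50 (without P30 replicate 2) to 0.12 (without E15.5 replicate 2) when 1 library was left out and was 0.04 without the 5 libraries numbered 1. The call of *Cdkn1b* was lost with library size alone.

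The 82 ribosomal protein genes that were tested (of 85 listed) had a median log2 fold change of -0.97, and 0 of them rose and 38 fell. Of the 38, *Rplp0* (log2 fold change -1.80 ± 0.31, adjusted p = 2.2e-04), *Rps26* (log2 fold change -1.98 ± 0.29, adjusted p = 5.8e-05) and *Rps28* (log2 fold change -2.16 ± 0.46, adjusted p = 0.0014) had some of the larger falls. At no step between neighbouring ages were 36 of the 38 called. Ribosomal protein genes have many processed pseudogenes, so their reads can be split between copies. At a test for a change beyond 2-fold, 0 rose and 2 fell. Of 44 listed proteasome genes, 40 passed the CPM limit, of which 6 rose and 1 fell, with a median log2 fold change of 0.45. *Psme1*, an activator of the immunoproteasome, was the 1 that fell (log2 fold change -3.35 ± 0.56, adjusted p = 1.8e-04). Among chaperone and antioxidant genes, 22 of 24 listed were tested, and 7 rose, 1 fell and 14 were not called (median log2 fold change 0.86). *Hsp90aa1*, the inducible counterpart of *Hsp90ab1*, rose from 102.01, 72.8 and 96.1 RPKM at E15.5 to 385, 301 and 351 RPKM at P30 (log2 fold change 1.96 ± 0.16, adjusted p = 9.0e-08). The 23 cholesterol synthesis genes had a median log2 fold change of -0.13, and 4 of them rose and 1 fell (17.4% and 4.35%, beside 19.6% and 17.8% of all genes tested). In the ribosomal protein list the falls numbered 68 with library size alone. In the proteasome list the rises numbered 0 with library size alone. There the falls numbered 2 with library size alone. The list median was -0.03 with library size alone. In the chaperone list the rises numbered 4 with library size alone. There the falls numbered 0 without E15.5 replicate 2 or P30 replicate 3 or with the 6 libraries alone or edgeR. In the cholesterol list the rises numbered 0 with library size alone, 1 without E15.5 replicate 1 or 3 or P30 replicate 1, with sample quality weights or without the 5 libraries numbered 1, and 2 without P30 replicate 3 or with the 6 libraries alone or edgeR. There the falls numbered 0 without E15.5 replicate 3 or with the 6 libraries alone, 2 without E15.5 replicate 2 or P30 replicate 1, with DESeq2 size factors, sample quality weights or counts thinned to equal depth or without mitochondrial genes, 4 without the 5 libraries numbered 1, and 5 with library size alone. Its median log2 fold change ranged from -0.28 (without P30 replicate 1) to 0.25 (without E15.5 replicate 2) when 1 library was left out and was -0.30 with DESeq2, -0.26 with edgeR and -0.37 without the 5 libraries numbered 1.

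Of 20 listed immediate early genes, 19 passed the CPM limit, of which 0 rose and 8 fell, with a median log2 fold change of -2.02. These genes can respond to dissociation within minutes, and their part in picked cells was not tested. *Nr4a2* fell from 3.27, 7.03 and 1.82 RPKM at E15.5 to 0.525, 0.0503 and 0.189 RPKM at P30 (log2 fold change -4.14 ± 1.18, adjusted p = 0.0094). *Egr3* was at 0.995, 2.52 and 2.47 RPKM at E15.5 and 0.152, 0.0232 and 0 RPKM at P30 (log2 fold change -5.90 ± 1.46, adjusted p = 0.004). *Egr1* was at 50.3, 62.8 and 45.4 RPKM at E15.5 and 47.3, 11.6 and 5.33 RPKM at P30 and was not called (log2 fold change -1.72 ± 0.99). Among neuropeptide and granin genes, 10 of 23 listed were tested, and 5 rose, 0 fell and 5 were not called (median log2 fold change 2.21). Granins fill dense-core vesicles. *Chga* rose from 9.61, 14.7 and 15.1 RPKM at E15.5 to 60.2, 73.8 and 68.6 RPKM at P30 (log2 fold change 2.34 ± 0.26, adjusted p = 3.2e-06). *Chgb* rose from 91.0, 45.9 and 77.6 RPKM at E15.5 to 326, 289 and 309 RPKM at P30 (log2 fold change 2.19 ± 0.29, adjusted p = 2.0e-05). *Scg5* was at 16.8, 19.99 and 10.8 RPKM at E15.5 and 91.5, 105 and 96.7 RPKM at P30 (log2 fold change 2.67 ± 0.34, adjusted p = 1.2e-05). The 47 clustered protocadherin entries that were tested (of 51 listed) had a median log2 fold change of -0.85, and 3 of them rose and 12 fell. Members of the alpha and of the gamma cluster share constant exons, so their counts can be split among them. In the immediate early gene list the falls numbered 4 without P30 replicate 2 or 3, 5 without E15.5 replicate 2, and 16 without the 5 libraries numbered 1. In the neuropeptide list the falls numbered 1 with library size alone. In the protocadherin list the falls numbered 5 without P30 replicate 3, with the 6 libraries alone or without the 5 libraries numbered 1, 6 without P30 replicate 1, and 19 with library size alone.

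Most of the genes called between E15.5 and P30 were called at no single step. Of the 5270 genes called, 3570 (67.7%) were called at none of the 4 steps between neighbouring ages, 1823 of them higher at P30 and 1747 lower. The steps themselves had 1263 calls (E15.5 to P1), 1065 (P1 to P8), 83 (P8 to P14) and 10 (P14 to P30). The steps share libraries with the whole span, and a step between ages with 3 libraries each has less room to pass 2-fold than the span. Of the 3570 gradual genes, 1433 had 5 fitted age means that moved in 1 direction throughout, 779 upward and 654 downward, and are called steady here. Their median change over the span was 1.92 on the log2 scale in size and their median largest step 0.859, and 925 of them had no step over 2-fold. The largest step was E15.5 to P1 for 579 steady genes, P1 to P8 for 499, P8 to P14 for 203 and P14 to P30 for 152.

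The steady label sets no limit on the size of a step, and 508 steady genes had a fitted step of 2-fold or more. Among the steady rises, *Esrrb* and *Tcap* were the largest. *Tcap* had age means of 0.0480, 0.396, 5.92, 20.9 and 29.5 RPKM, so large single steps near the count floor can go uncalled. *Esrrb* had age means of 0.0119, 0.762, 1.77, 3.75 and 6.47 RPKM. The study placed *Esrrb* among its genes up-regulated from E15.5 to P1. That step was not called here, although the mean went from 0.0119 to 0.762 RPKM. *Sh3bgr*, a small protein with an SH3-binding motif, had age means of 0.145, 1.39, 6.59, 13.3 and 25.02 RPKM (log2 fold change 7.27 ± 1.20, adjusted p = 1.6e-04). *Cdr1*, a gene on the X chromosome (chrX:61184005-61185558, GRCm38) that overlaps the exons of a noncoding transcript on the other strand, had age means of 2.94, 14.1, 40.9, 106 and 165 RPKM (log2 fold change 5.87 ± 0.95, adjusted p = 1.3e-04), and its counts can hold reads of both. *Gm13629*, a noncoding transcript antisense to *Scn9a*, had age means of 0.393, 1.90, 7.58, 18.1 and 31.3 RPKM (log2 fold change 6.40 ± 1.06, adjusted p = 1.6e-04), where *Scn9a* itself fell. *Cyp2s1*, a cytochrome P450, had age means of 0.0938, 0.397, 1.38, 1.53 and 3.23 RPKM (log2 fold change 5.46 ± 0.98, adjusted p = 3.2e-04), and *Fam43b* had means of 0.423, 1.13, 2.76, 5.07 and 6.91 RPKM (log2 fold change 5.22 ± 1.22, adjusted p = 0.0026). *Htr1d*, a serotonin receptor, had 1 E15.5 library at 3.90 RPKM and 2 at 0, so its mean RPKM was not in order (1.301, 0.501, 2.57, 5.17 and 9.72 RPKM), though its fitted log2 means were (log2 fold change 7.07 ± 1.79, adjusted p = 0.0046). With 1 exception, these genes were at their highest mean level at P30 and at their lowest at E15.5, an order that the steady label sets for the fitted means. *Htr1d* was no longer called with DESeq2, with edgeR or with sample quality weights.

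The steady falls were led by *Ifitm2*. *Epha3*, an ephrin receptor, had age means of 3.37, 1.498, 0.821, 0.200 and 0.103 RPKM (log2 fold change -5.89 ± 1.35, adjusted p = 0.0023). *Fbn2* (fibrillin-2), a microfibril protein of embryonic matrix, had means of 4.86, 2.79, 0.888, 0.349 and 0.162 RPKM (log2 fold change -5.73 ± 1.63, adjusted p = 0.0093), and *Mstn* (myostatin), a TGF-beta family ligand, had means of 5.64, 3.78, 1.996, 0.962 and 0.263 RPKM (log2 fold change -5.57 ± 1.43, adjusted p = 0.005). *Tspan6*, a tetraspanin, had means of 19.5, 9.09, 3.52, 1.49 and 0.664 RPKM (log2 fold change -5.25 ± 0.89, adjusted p = 2.0e-04), and *Kcnmb4*, the neuronal beta subunit of BK channels, had means of 4.04, 2.23, 0.734, 0.313 and 0.120 RPKM (log2 fold change -5.23 ± 0.99, adjusted p = 5.2e-04). The noncoding or unclassified transcripts *Gm26640* (log2 fold change -6.58 ± 1.52, adjusted p = 0.0024) and *Gm43486* (log2 fold change -5.54 ± 0.98, adjusted p = 2.9e-04) completed the 8. At P14 the mean level of each was already below its lowest E15.5 library. Steady genes of the lists at higher levels were *Syp*, *Pkm*, *Hsp90aa1*, *Scrt1* and *Cacng7* upward and *Ncan*, *Tubb5*, *Ina* and *Tet2* downward. *Syp* had age means of 57.8, 115, 211, 277 and 298 RPKM, *Hsp90aa1* of 90.3, 148, 196, 267 and 345 RPKM, *Tubb5* of 319.8, 294, 176, 105 and 70.1 RPKM and *Tet2* of 9.51, 7.12, 4.62, 2.88 and 2.27 RPKM.

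**Figure D5:**
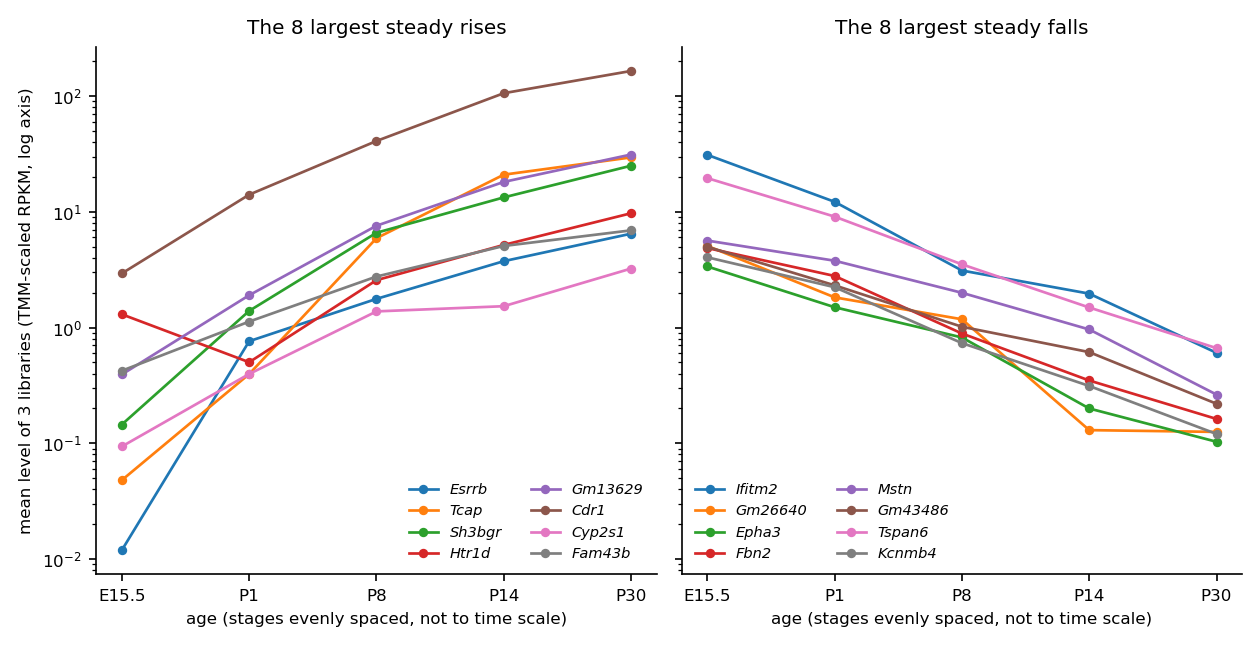
Lines join the mean RPKM of 5 ages (log axis, n = 3 libraries per age) for the steady genes named in the text, with rises and falls in separate panels. *Sh3bgr* goes from 0.145 RPKM at E15.5 to 25.02 RPKM at P30, and *Tspan6* from 19.5 to 0.664 RPKM.

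Libraries of P1 and P14 had no part in the contrast of E15.5 with P30 other than in the shared estimate of spread, and they gave the same direction for most of the calls. Of the 2767 genes that rose, 92.4% had a higher fitted mean at P14 than at P1, against 48.2% of all genes tested, and 978 (35.3%) were called higher there and 2 lower, beside 8.07% of all genes called higher. Of the 2503 genes that fell, 91.5% had a lower fitted mean at P14 than at P1, and 753 (30.1%) were called lower there and 2 higher, beside 6.89% of all genes called lower. Not every change ran to the end of the span. The fitted mean was highest at P30 for 1703 of the genes that rose, at P14 for 757, at P8 for 251 and at P1 for 56. For 2171 of the genes that fell the highest mean was at E15.5, and the lowest mean was at P30 for 1601 of them all, at P14 for 665, at P8 for 195 and at P1 for 42. Gene length moved with the direction, and the median log2 fold change was 0.22, 0.075, -0.0025 and -0.24 from the shortest to the longest of 4 length bins of equal size, and the part of length in the calls was not tested. Exons of another gene on the same strand overlap those of *Gata3*, *Gm16551*, *Igf2bp1*, *Ifitm2*, *Meg3*, *Neurod1*, *Stmn1*, *Tuba1a*, *Kcnab2*, *Gria2*, *Gria3*, *Gria4*, *Pfkm*, *mt-Nd1*, *Atp5g2*, *Bcl2l2* and *Pkm*, and exons on the other strand overlap those of *Shh*, *Lypd1*, *Prox1*, *Gfi1*, *Map1a*, *Gm13446*, *Runx1*, *Tuba4a*, *Klc1*, *Nefl*, *Nefm*, *Ina*, *Efna3*, *Unc5a*, *Plxna4*, *Scn9a*, *Kcnk1*, *Kcna6*, *Kcnt2*, *Cacna1h*, *Cacna1a*, *Cacnb2*, *Cacnb4*, *Cntnap1*, *Syp*, *Syn1*, *Syn3*, *Cnih2*, *Grin1*, *Grm7*, *Grin2d*, *Hpca*, *Camk4*, *Gfra1*, *Aldoa*, *Pfkp*, *Atp1b1*, *Cox5a*, *mt-Nd5*, *Ndufa11*, *Atp5l*, *Ezh2*, *Kdm6b*, *Tet2*, *Dnmt3a*, *Celf3*, *Celf5*, *Mbnl2*, *Cdk4*, *Cdkn1c*, *Nnat*, *Rps28*, *Psme1*, *Cdr1*, *Gm13629*, *Cyp2s1*, *Fam43b*, *Fbn2* and *Kcnmb4*. The strand setting of the counting is not given in the sources used here, so for these genes, and for 1782 of the 5270 called genes in all, counts can hold reads of a neighbour.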

How the data were processed

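RNA of hand-picked cells was extracted with PicoPure, amplified with the Ovation RNA-Seq System V2 and made into libraries with Ovation Rapid DR. Per the labels and the study's methods, the authors aligned reads to mm10 with STAR 2.4.0i and counted them per GENCODE M15 gene with featureCounts, and deposited raw counts with no normalization. Even values made up 66.7% to 69.6% of the counts from 1 to 20 in the E15.5 and P30 libraries, a sign that a read pair may have been counted as 2, so totals are not numbers of molecules, and counting intervals cover counting error only.

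Symbols came from GENCODE M21 (52403 of 52550 genes matched), and gene lengths were those deposited with the counts. TMM factors (edgeR 4.0.16) and limma-voom (limma 3.58.1, R 4.3.3) were applied to the 15 SGN libraries with 1 mean per age, and genes were tested where CPM was over 1 in all 3 libraries of E15.5 or of P30. Fold changes are fitted log2 values with standard errors, and p-values are two-sided. The named genes are the 12 largest rises and falls and the 8 largest steady rises and falls with CPM over 10 in all 3 libraries of 1 age and no overlap between ages, the 6 of smallest adjusted p in each direction, the 5 of highest mean CPM within 2-fold, *Shh*, and members of each list chosen for their role. Some genes that this rule names are not reported here. A gene with no counts at 1 age was given a floor of 3 counts per library, and one with 1 to 3 counts a ratio with its counting interval. The members and lists were chosen with earlier results of these data known. Alternatives were edgeR's quasi-likelihood test, DESeq2 1.42.0, other scalings, filters, weights and library sets, and, chosen after the data were seen, the fit without the libraries numbered 1. The pipeline was tested on simulated counts.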

Additional observations from a re-analysis of the deposited data

How the results depend on the processing

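Over 22 other settings the numbers of genes called, called in each direction, gradual, steady and within 2-fold stayed within 1.5 times their values with 3 exceptions. A test for a change beyond 2-fold called 1817 genes, 1042 higher and 775 lower, with 1728 gradual and 887 steady. With library size alone 1726 were higher and 3959 lower. With CPM over 10, the gradual genes numbered 2312. In the gene lists above, the test beyond 2-fold was given for ribosomal proteins alone. It left 0 protocadherin, 1 immediate early and 4 cell cycle falls, and 0 chromatin, 0 calcium channel and 0 cholesterol rises. It kept 28 vesicle release rises and 17 axon growth falls. Without 1 library at a time the calls ranged from 4309 to 5196 (2353 to 2628 higher, 1913 to 2568 lower), gradual genes from 2885 to 3398, steady genes from 1241 to 1435 and genes within 2-fold from 1450 to 1868. edgeR called 5077 genes and DESeq2 5466. Intervals within 2-fold were not computed with edgeR, and gradual genes could not be had from 6 libraries. With the replicate number as a block 5385 genes were called (2773 higher, 2612 lower), with 3494 gradual, 1403 steady and 2113 within 2-fold. The numbers were not taken to pair the samples, since same-numbered E15.5 and P30 libraries had correlations of their deviations of -0.077, -0.16 and 0.00086, and none of the 3 E15.5 libraries correlated best with its own number, although *Hbb-bs* was found in the libraries numbered 1 alone, at 4 of 5 ages.

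Of 227 named genes tested, 199 were called. Of these, 189 were tested in all 22 settings and 152 of them were called in all, while 10 were not tested in some setting. The test beyond 2-fold removed 38 calls and library size alone 15. No called gene changed sign. Of the genes that were not called, 8 changed sign in some setting. Without the libraries numbered 1 the log2 fold changes were 0.0075 for *Gm26917*, 0.042 for *Meg3*, 0.10 for *Ntrk3* and -0.033 for *Rbfox3*. With library size alone they were -0.022 for *Atp5g2*, -0.26 for *Gria3*, -0.081 for *Gria4*, -0.31 for *Rbfox3* and -0.080 for *Tubb3*. With sample quality weights the value was 0.059 for *Gm26917*. Without 1 library at a time the log2 fold change ranged from -0.18 to 0.20 for *Gm26917*, -0.030 to 0.43 for *Gria3*, -0.58 to 0.063 for *Meg3* and -0.042 to 0.49 for *Rbfox3*.

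Depth limits the genes that are low at 1 age, since 3 counts equal up to 0.233 CPM, and the spread of 3 libraries limits genes in which P30 replicate 1 stands apart. The cause of the changes between settings was not tested.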

Other observations

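A group of genes best known from striated muscle rose in SGNs toward P30, beside *Tcap*, *Myom3*, *Dusp27* and *Sh3bgr*, and its other members were chosen after their values were seen. *Trim54*, a RING finger protein of the sarcomere, was at 0, 0 and 0.0317 RPKM at E15.5 and at 7.42, 6.32 and 5.65 RPKM at P30. *Colq*, the collagen tail of acetylcholinesterase, was at 0.0329, 0.0719 and 0.0479 RPKM at E15.5 and at 6.17, 7.58 and 14.5 RPKM at P30. *Actn2*, a Z-disc actinin, was at 0.165, 0.565 and 0.0240 RPKM at E15.5 and at 3.36, 4.81 and 4.26 RPKM at P30, and *Mb* (myoglobin) at 0.450, 0 and 0 RPKM and at 5.35, 3.79 and 8.89 RPKM. *Cox8b*, a cytochrome c oxidase subunit of heart and skeletal muscle, was at 0, 1.27 and 1.77 RPKM at E15.5 and at 20.1, 23.7 and 14.7 RPKM at P30. All 5 were called higher, with log2 fold changes of 7.23 ± 1.22 for *Colq*, 4.81 ± 0.90 for *Actn2*, 6.73 ± 1.54 for *Mb* and 4.89 ± 1.23 for *Cox8b*, and with 1 count at E15.5 the ratio of *Trim54* was 570 (95% counting interval 102 to 22529). The lowest P30 library was above the highest E15.5 library in each.

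Several other contractile and enzyme genes of skeletal muscle did not show this pattern, while *Ttn* and *Myl1*, given below, differed from them. Whether muscle transcripts carried over from other cells was not tested. At P30 *Acta1*, the skeletal actin, was at 4.44, 0.266 and 0.937 RPKM, *Ckm*, the muscle creatine kinase, at 0.230, 0.0700 and 0.198 RPKM, *Mylpf*, a fast myosin light chain, at 4.39, 0.864 and 0.181 RPKM, and *Tnnt3*, the fast troponin T, at 2.98, 0 and 0 RPKM. *Tnnc2* had 0 RPKM in all 6 libraries. The myosin heavy chains *Myh1*, *Myh2*, *Myh4* and *Myh7* and *Des* (desmin) were also looked at and did not pass the CPM limit. At P30 *Myh1*, *Myh2*, *Myh7* and *Des* were highest in replicate 1. *Myh4* was at 0.0608, 0.136 and 1.51 RPKM at P30 and so was highest in replicate 3. The highest of the 3 P30 values was that of replicate 1 for *Acta1*, *Ckm*, *Mylpf* and *Tnnt3*. Among the genes that rose it was also that of replicate 1 for *Trim54* and *Ttn*. It was that of another library for *Colq*, *Actn2*, *Mb* and *Cox8b*. Of 3 further muscle-type genes that were tested, *Ttn* (titin, log2 fold change 1.12 ± 0.44, adjusted p = 0.049 by limma-voom) and *Cox7a1* (2.97 ± 1.09, adjusted p = 0.036) were called higher, the former with overlapping libraries, and *Myl1* (2.34 ± 1.24, adjusted p = 0.13) was not called. *Myl1*, a myosin light chain, had age means of 0.840, 6.44, 21.2, 13.3 and 4.92 RPKM. At P30 it was at 9.13, 4.43 and 1.20 RPKM, highest in replicate 1.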
